A study of Danio rerio with 48 samples.

Results

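The comparison took 6 pools of zebrafish (Danio rerio) larval heads collected at 5 days post fertilization (dpf) and set them against 6 pools collected at 4 dpf. All 12 pools came from larvae of a mixed wild-type line that received 0.4% dimethyl sulfoxide (DMSO), a solvent, and no other agent. They are the vehicle arm of a 48-library study of the fluorinated surfactant perfluorooctane sulfonic acid (PFOS), in which the other 36 libraries had 0.88, 1.57 or 2.8 µM PFOS in the same 0.4% DMSO, with 6 pools for each concentration and age. Each library was made from the polyadenylated RNA of 15 heads, cut off in front of the swim bladder. The embryos were bleached on the day of fertilization and kept one to a well in 10% Hanks' balanced salt solution at 26 °C under a cycle of 14 h light and 10 h dark, with fresh solution each day. Pools carried the letters B, C, E, G, H and I at 5 dpf and A, D, F, G, H and I at 4 dpf, and nothing in the labels ties a letter to a clutch, plate or day. The p-values below therefore measure the spread between pools, and a pool of 15 heads hides any difference between single larvae. All genes took part: the table held 25377 genes, of which 20021 passed a filter on low counts and were tested.

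By these ages a zebrafish larva has hatched, and it is about to change from living on yolk to catching food. Around this time the swim bladder fills, the gut, liver and exocrine pancreas take up their digestive work, oligodendrocytes wrap the first hindbrain axons, and the eyes and jaw used in hunting are already working. The head itself holds the brain, eyes, ears, nose, jaw, gills, pituitary and thyroid, with the heart just below, and the front ends of the liver, gut and kidney lie close to the level of the swim bladder at which the heads were cut.

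Library totals ran from 16965122 to 27475748 counts at 5 dpf and from 19473665 to 23748350 counts at 4 dpf. Values are given as CPM, the count of a gene scaled to a common library total. No transcript lengths were used, so the levels of different genes are not compared. Pairwise correlations of log2 CPM were 0.946 to 0.981 among the 5 dpf pools, 0.967 to 0.985 among the 4 dpf pools and 0.902 to 0.976 between the ages. The first principal component of the 12 libraries held 48.9% of the variance and parted the ages. 5 dpf pool E, at 5.10 on that axis, lay nearest to the 4 dpf pools, which stood at 21.5 or above, while the other 5 dpf pools stood at -30.2 or below. 4 dpf pool I, at 21.5, lay nearest to the 5 dpf pools. A set of 1317 genes was called for age in the same direction at all 3 PFOS concentrations. Those contrasts compared libraries other than these 12, but the fit shared its filter, scaling and estimate of spread with them. The set also placed 5 dpf pool E and 4 dpf pool I closest to the other age. 5 dpf pool E stood nearest to the 4 dpf side for 37.7% of these genes, pool C for 36.2% and pool G for 8.05%, whereas on the axis pool G, at -30.2, came before pool C, at -33.3. 4 dpf pool I stood nearest to the 5 dpf side for 33.6% of these genes.

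In 1 day, 2838 of the 20021 genes tested (14.2%) changed at an adjusted p under 0.05 in edgeR's quasi-likelihood test. Of these, 1869 (9.34% of genes tested) rose and 969 (4.84%) fell. Rises and falls differed in size: 1195 of the genes that rose did so by more than 2-fold and 247 by more than 8-fold, while 92 of those that fell did so by more than 2-fold and 4 by more than 8-fold. The median log2 fold change was 1.23 among genes that rose and -0.59 among genes that fell, against -0.0042 over all genes tested. In 1031 genes (5.15%) every 5 dpf pool lay above every 4 dpf pool, and in 614 genes (3.07%) every 5 dpf pool lay below. On the deposited quantile normalized values, limma-trend called 1419 genes higher and 1426 lower, a share of 49.9% higher against 65.9% in the edgeR fit, and there the median over all genes was -0.10. With limma voom and sample quality weights 52.8% of 7112 calls were higher. Without 5 dpf pool B, edgeR called 1490 genes higher and 539 lower, and 1712 of the 2838 genes were called whichever single pool was left out.

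**Figure D1:**
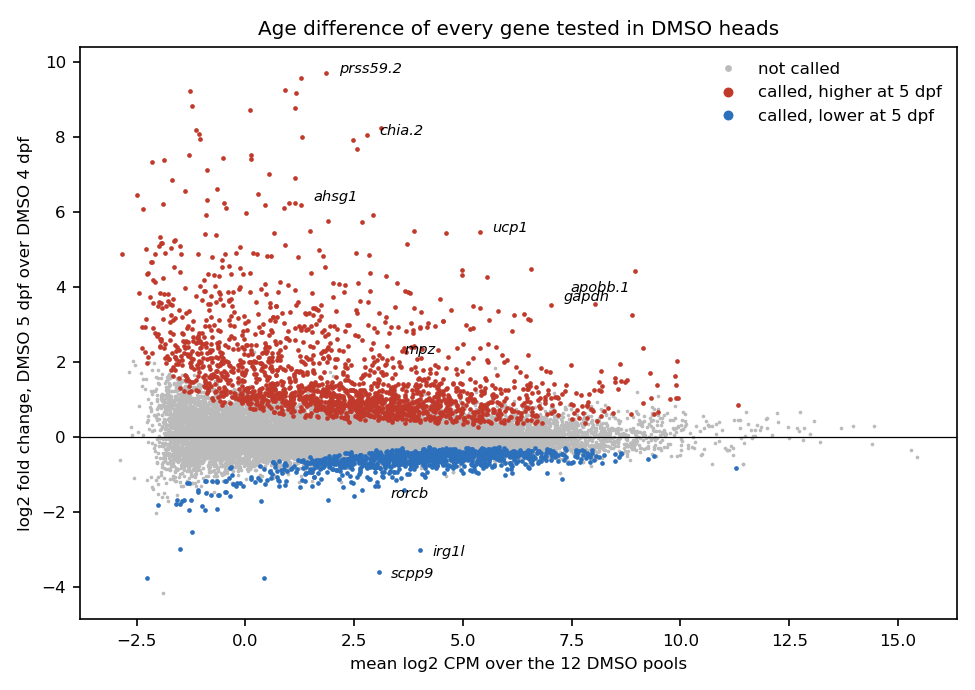
Each point is a gene. The horizontal axis is its mean log2 CPM over the 12 DMSO pools and the vertical axis its log2 fold change at 5 dpf over 4 dpf. Red marks the 1869 genes called higher at 5 dpf, blue the 969 called lower and grey the genes not called; rises reach far larger sizes than falls.

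The genes that rose most, among named genes of at least 1 mean log2 CPM, were all genes of the pancreas, gut or liver: prss59.2, ela2l, amy2a, ctrb1, chia.2, prss59.1, ela2, ctrl, crp, ahsg1, cpa5 and prss1. Their products are pancreatic proteases and amylase, a chitinase and plasma proteins made by the liver. The genes that fell most were scpp9, irg1l, zdhhc8a, rorcb, mef2ab, plppr4b, cnrip1b, rcn3, duox, aep1, btbd17a and ppp1r14c. The call of rcn3 was lost without 5 dpf pools B, E, G, H or I or without 4 dpf pools A or I (edgeR adjusted p = 0.053 to 0.077). These cover many functions, from a secreted phosphoprotein family member (scpp9) and an epithelial and immune-responsive enzyme gene (irg1l) to a clock-linked nuclear receptor (rorcb) and the dual oxidase that supplies hydrogen peroxide to the thyroid (duox). Below, 3 numbers given for an age are the lowest, the median and the highest of its 6 pools, fold changes are 5 dpf over 4 dpf on a log2 scale with their standard error, and a gene is said to have risen or fallen when its edgeR adjusted p was under 0.05.

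Beyond single genes, 62 lists of genes for tissues, cell types and pathways held 1957 tested genes, 531 of them called. A member share called is to be read against the background of 9.34% higher and 4.84% lower over all genes. A count of members without overlap between the ages is to be read against 5.15% above and 3.07% below over all genes.

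**Figure D2:**
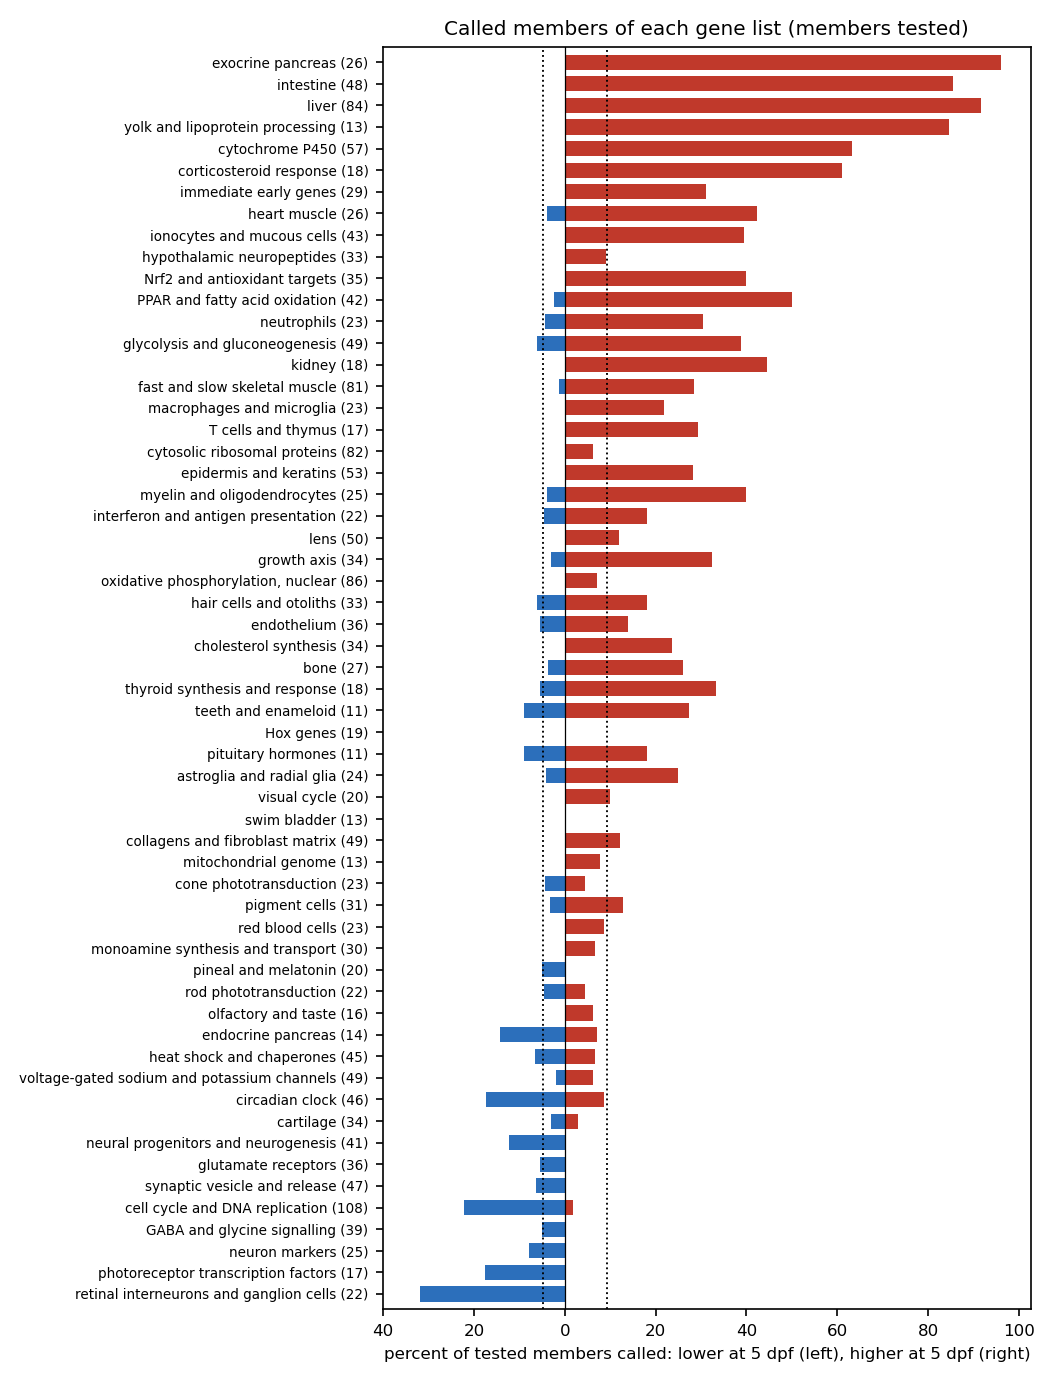
Bars give, for the lists with 10 or more tested members that are described here (number in brackets), the percent of tested members called lower at 5 dpf to the left (blue) and higher at 5 dpf to the right (red). Dotted lines mark the background over all genes, 4.84% and 9.34%. Lists are ordered by median fold change, with the exocrine pancreas at the top and retinal interneurons and ganglion cells at the bottom.

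Exocrine pancreas genes, which encode the enzymes that acinar cells store and release into the gut, rose more than any other list tested, with 25 of 26 tested members higher, none lower and a median log2 fold change of 7.47. Trypsin gene prss1 (chr16:25080764-25085328 in GRCz11) had 0.683, 19.7 and 164 CPM at 5 dpf, against 0.489, 0.837 and 1.04 CPM at 4 dpf (log2 fold change 5.75 ± 0.87, edgeR adjusted p = 3.5e-06). Elastase gene ela2l stood at 0.384, 46.5 and 547 CPM at 5 dpf, against 0.0413, 0.147 and 0.308 CPM at 4 dpf (log2 fold change 9.57 ± 1.47, edgeR adjusted p = 4.5e-06). The amylase gene amy2a, whose product digests starch, had 0.0427, 48.4 and 370.1 CPM at 5 dpf, against 0, 0.138 and 0.570 CPM at 4 dpf (log2 fold change 8.76 ± 1.30, edgeR adjusted p = 2.5e-06). Of these 3, ela2l did not overlap between the ages, while prss1 and amy2a did, through 1 pool: in 5 dpf pool E prss1 had 0.683 CPM and amy2a 0.0427 CPM, within the 4 dpf range. The carboxypeptidase gene cpb1 rose to 0.470, 4.07 and 35.9 CPM at 5 dpf, against 0, 0.140 and 0.382 CPM at 4 dpf (log2 fold change 5.97 ± 0.82, edgeR adjusted p = 6.5e-07). Chymotrypsinogen gene ctrb1 showed the widest spread, 0.171, 166 and 2024 CPM at 5 dpf, against 0.188, 0.674 and 4.32 CPM at 4 dpf (log2 fold change 8.23 ± 1.54, edgeR adjusted p = 0.00011). Pool B was the highest 5 dpf pool for all of the genes in this paragraph named so far, and pool E the lowest. The near-identical neighbours prss59.1 and prss59.2 had log2 fold changes of 8.00 ± 1.18 and 9.71 ± 1.59, and reads may be split between such copies. Without 5 dpf pool B the log2 fold change was 4.64 for prss1, 7.95 for ela2l, 7.51 for amy2a, 4.93 for cpb1, 6.63 for ctrb1, 6.30 for prss59.1 and 8.07 for prss59.2, and 25 members of the list were called without it. Without 4 dpf pool F that of ctrb1 was 8.87.

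Summed over the list, pancreas transcripts made up 5.85 CPM in 5 dpf pool E and 7758 CPM in 5 dpf pool B, against 4.06 to 16.5 CPM at 4 dpf. The list level, the mean log2 CPM of its members, was -2.16 in pool E, 1.66 in C, 1.87 in H, 3.74 in G, 4.06 in I and 6.16 in B at 5 dpf, against -2.497 to -1.28 at 4 dpf. Of the 33 genes whose log2 CPM had an SD of 2 or more among the 5 dpf pools, 32 were called higher, while 4 genes had such a spread at 4 dpf. In pooled tissue more cells of a type and more RNA per cell cannot be told apart, and neither can be told from more of an organ having been carried in with the cut. Of 14 tested endocrine pancreas genes, 1 rose and 2 fell. The riser was pdx1, a pancreas and gut regulator (log2 1.53 ± 0.43, edgeR adjusted p = 0.012), whose call was lost without 5 dpf pool I (edgeR adjusted p = 0.064), and the genes that fell were isl1 and pax6b, which neurons and retina also use.

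Intestinal genes followed the same course, with 41 of 48 tested members higher, none lower and a median of 2.96. The enterocyte fatty acid binding protein gene fabp2 had 0.598, 4.91 and 9.46 CPM at 5 dpf, against 0.188, 0.581 and 0.964 CPM at 4 dpf (log2 fold change 3.11 ± 0.66, edgeR adjusted p = 0.00057). Brush border villin gene vil1, which other epithelia also use, moved less, to 24.1, 51.9 and 67.6 CPM at 5 dpf, against 14.9, 26.6 and 29.2 CPM at 4 dpf (log2 fold change 1.00 ± 0.25, edgeR adjusted p = 0.0038). Apolipoprotein gene apoa4b.1 had 7.47, 24.04 and 41.6 CPM at 5 dpf, against 0.382, 2.27 and 6.87 CPM at 4 dpf (log2 fold change 2.97 ± 0.53, edgeR adjusted p = 5.1e-05). All of these had their lowest 5 dpf value in pool E. The ages did not overlap for apoa4b.1 and overlapped for fabp2 and vil1.

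Genes for nutrient uptake were among the clearest. The sodium-glucose transporter gene slc5a1 rose to 0.982, 9.56 and 21.6 CPM at 5 dpf, against 0.0752, 0.303 and 0.382 CPM at 4 dpf (log2 fold change 5.45 ± 0.57, edgeR adjusted p = 1.6e-09). The neutral amino acid transporter gene slc6a19a.2 had 3.37, 23.2 and 39.9 CPM at 5 dpf, against 0.218, 0.603 and 1.52 CPM at 4 dpf (log2 fold change 4.83 ± 0.55, edgeR adjusted p = 1.2e-08). The peptide transporter gene slc15a1b (log2 4.83 ± 0.65, edgeR adjusted p = 3.7e-07) and the brush border peptidase gene anpepb (log2 4.35 ± 0.54, edgeR adjusted p = 8.7e-08) also rose. The digestive chitinase gene chia.2 stood at 5.42, 175 and 350.1 CPM at 5 dpf, against 0, 0.424 and 1.76 CPM at 4 dpf (log2 fold change 8.04 ± 0.88, edgeR adjusted p = 6.3e-09). The gene chia.1 had 0.342, 13.0 and 67.9 CPM at 5 dpf, against 0, 0.0386 and 0.0950 CPM at 4 dpf (log2 fold change 8.72 ± 0.91, edgeR adjusted p = 1.6e-09). Without 5 dpf pool B the log2 fold change of chia.1 was 7.83 and that of anpepb 3.67. Both chitinases and both transporters were higher in every 5 dpf pool than in every 4 dpf pool. The chitinases are close copies, so their shares of reads are uncertain.

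Liver genes rose as broadly, 77 of 84 tested members with none lower, a median of 2.90 and 53 members without overlap between the ages. Over all genes 5.15% had every 5 dpf pool above every 4 dpf pool. The hepatocyte marker gene fabp10a, a liver fatty acid binding protein, had 24.9, 102 and 224 CPM at 5 dpf, against 0.289, 2.32 and 7.83 CPM at 4 dpf (log2 fold change 5.15 ± 0.80, edgeR adjusted p = 5.6e-06). Transferrin gene tfa, an iron carrier of plasma, stood at 101, 251 and 421 CPM at 5 dpf, against 24.2, 36.6 and 184 CPM at 4 dpf (log2 fold change 1.83 ± 0.51, edgeR adjusted p = 0.011). The protease inhibitor gene serpina1l had 33.3, 87.5 and 216 CPM at 5 dpf, against 3.72, 6.28 and 27.6 CPM at 4 dpf (log2 fold change 3.38 ± 0.57, edgeR adjusted p = 2.5e-05). The ages overlapped for tfa, where 4 dpf pools A and I reached 131 and 184 CPM, and not for the other 2. The plasma glycoprotein gene ahsg1 (chr22:37874691-37881715 in GRCz11) had the smallest p of the list, with 5.38, 21.9 and 35.9 CPM at 5 dpf, against 0.0771, 0.266 and 0.458 CPM at 4 dpf (log2 fold change 6.19 ± 0.53, edgeR adjusted p = 5.8e-12). The gene tat, a tyrosine-degrading enzyme, had 4.48, 15.5 and 55.8 CPM at 5 dpf, against 0.382, 0.529 and 2.21 CPM at 4 dpf (log2 fold change 4.53 ± 0.51, edgeR adjusted p = 1.1e-08). The log2 fold change of tat was 3.93 without 5 dpf pool I, and that of serpina1l 3.96 without 4 dpf pool I.

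Other liver list members that rose were cyp7a1, the rate-limiting enzyme of bile acid synthesis (log2 4.57 ± 0.65, edgeR adjusted p = 1.3e-06), and abcb11b, the bile salt exporter (log2 2.96 ± 0.44, edgeR adjusted p = 3.1e-06), both chosen after their values were seen. The acute phase gene crp had 2.07, 20.5 and 48.1 CPM at 5 dpf, against 0.0413, 0.304 and 0.523 CPM at 4 dpf (log2 fold change 6.22 ± 0.93, edgeR adjusted p = 3.1e-06). Complement genes c3a.1 (log2 2.83 ± 0.46, edgeR adjusted p = 1.3e-05) and c5 (log2 3.20 ± 0.45, edgeR adjusted p = 1.1e-06), the vitamin D carrier gene gc (log2 3.69 ± 0.56, edgeR adjusted p = 3.4e-06) and the copper carrier gene cp (log2 3.15 ± 0.39, edgeR adjusted p = 9.3e-08) rose as well, and of these 4 only c3a.1 was named by the rule. The liver list level was 2.75 in 5 dpf pool E and 3.62 to 4.96 in the other 5 dpf pools, against 0.50 to 2.27 at 4 dpf. Unlike the pancreas list, even pool E lay above every 4 dpf pool.

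Lipoprotein genes, which package yolk and dietary fat, rose in 11 of 13 members. The structural apolipoprotein gene apobb.1 had 310.2, 1095 and 1674 CPM at 5 dpf, against 21.9, 97.0 and 190.0 CPM at 4 dpf (log2 fold change 3.54 ± 0.55, edgeR adjusted p = 6.7e-06). Microsomal transfer protein gene mttp, which loads lipid onto it, had 3.76, 10.1 and 17.6 CPM at 5 dpf, against 1.02, 1.69 and 4.16 CPM at 4 dpf (log2 fold change 2.31 ± 0.43, edgeR adjusted p = 0.00012). The gene apoa2 had 173, 635 and 958 CPM at 5 dpf, against 6.71, 20.6 and 54.6 CPM at 4 dpf (log2 fold change 4.47 ± 0.74, edgeR adjusted p = 1.8e-05). The ages did not overlap for apobb.1 and apoa2 and overlapped for mttp. The lysosomal protease gene ctsl.1, which cleaves yolk proteins, rose (log2 1.88 ± 0.32, edgeR adjusted p = 3.1e-05). Across the pancreas, intestine, liver and lipoprotein lists, 147 of 164 distinct tested genes rose and none fell, leaving 1722 genes that rose and 969 that fell outside them. Only genes past the filter on low counts enter such shares, 26 of 33 pancreas genes and 48 of 58 intestinal genes in the table. Members at trace levels at 4 dpf could pass that filter through 5 dpf pools and could then only rise. The shares of these lists are therefore in part set by the filter. Other lists with members at trace levels at 4 dpf share this limit.

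**Figure D3:**
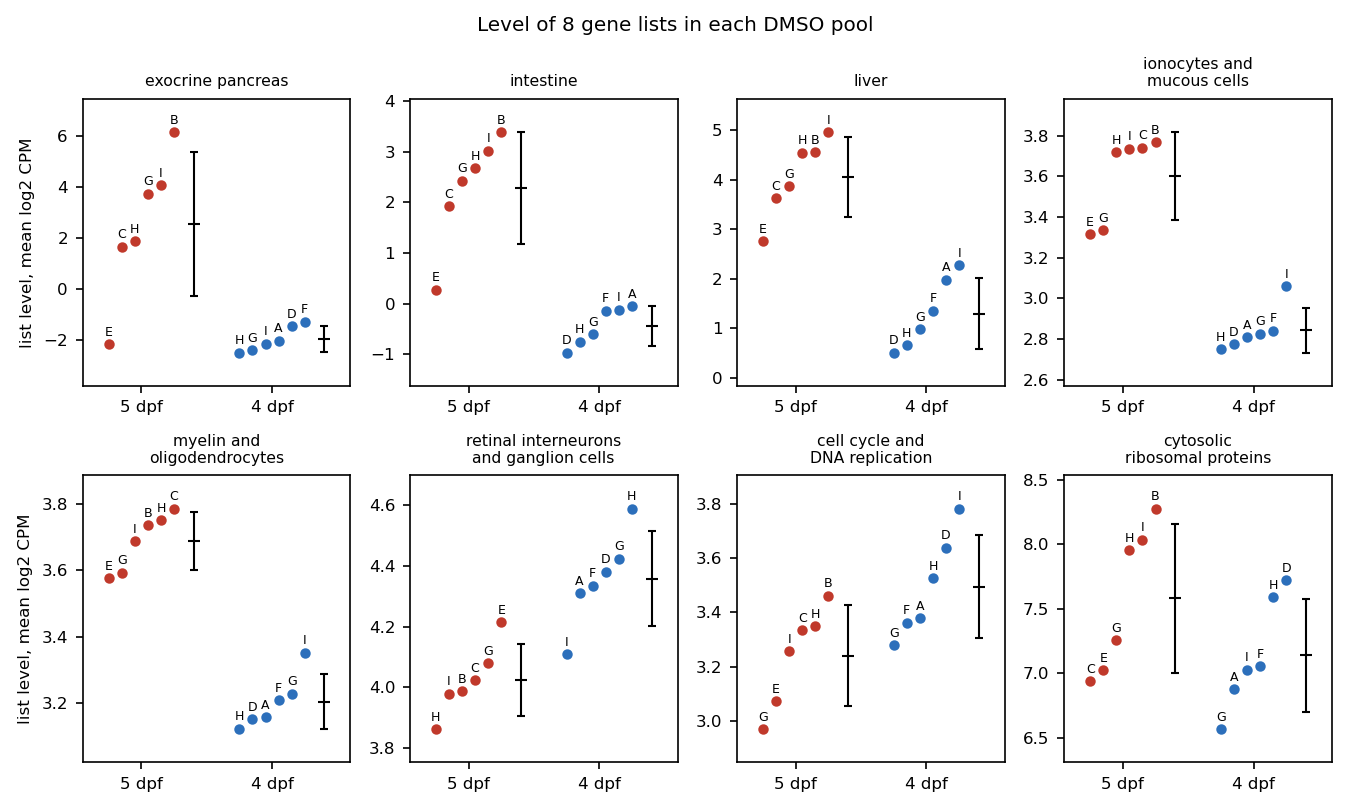
Points are DMSO pools, marked with their letters and sorted by value within each age, 5 dpf (red) on the left and 4 dpf (blue) on the right. The vertical axis is the mean log2 CPM of the list's tested members, and bars to the right of the points are the mean ± SD of 6 pools. Pancreas genes in 5 dpf pool E sit at the 4 dpf level, while ionocyte and myelin genes are higher in all 5 dpf pools.

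Kidney genes rose in 8 of 18 tested members, with a median of 0.53, and the members that rose included transporters of the tubule. The organic cation transporter gene slc22a2 had the smallest p of any gene tested, 24.9, 53.1 and 82.2 CPM at 5 dpf, against 4.40, 4.97 and 7.87 CPM at 4 dpf (log2 fold change 3.34 ± 0.26, edgeR adjusted p = 9.6e-13). The sodium-coupled lactate transporter gene slc5a12 had 11.3, 22.3 and 30.3 CPM at 5 dpf, against 1.96, 2.60 and 4.50 CPM at 4 dpf (log2 fold change 2.90 ± 0.40, edgeR adjusted p = 5.3e-07). The kidney cadherin gene cdh17 had 8.80, 22.1 and 41.7 CPM at 5 dpf, against 2.82, 3.89 and 8.33 CPM at 4 dpf (log2 fold change 2.43 ± 0.37, edgeR adjusted p = 4.2e-06). The phosphate transporter gene slc20a1a had 20.4, 38.6 and 51.4 CPM at 5 dpf, against 7.40, 9.30 and 17.996 CPM at 4 dpf (log2 fold change 1.82 ± 0.29, edgeR adjusted p = 9.2e-06). None of the 4 overlapped between the ages. Podocyte genes, which mark the filter, did not pass. The slit diaphragm gene nphs1 had 1.92, 2.68 and 5.10 CPM at 5 dpf, against 1.504, 2.04 and 2.62 CPM at 4 dpf (log2 fold change 0.67 ± 0.27, edgeR adjusted p = 0.10). The gene podxl had 14.2, 19.2 and 21.9 CPM at 5 dpf, against 10.2, 16.1 and 18.5 CPM at 4 dpf (log2 fold change 0.26 ± 0.20, edgeR adjusted p = 0.44). Outside the lists the organic anion transporter gene slc22a6l, chosen after its value was seen, had 12.8, 32.8 and 52.3 CPM at 5 dpf, against 0.810, 1.06 and 1.54 CPM at 4 dpf (log2 fold change 4.90 ± 0.40, edgeR adjusted p = 2.6e-12).

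Markers of the trunk behind the cut gave the following values. None of 13 tested swim bladder genes was called, with a median of 0.18, and 1 was called without 5 dpf pool E. The surfactant gene sftpbb had 1.15, 1.598 and 2.05 CPM at 5 dpf, against 0.903, 1.36 and 1.77 CPM at 4 dpf (log2 fold change 0.24 ± 0.31, edgeR adjusted p = 0.66). None of 19 tested Hox genes was called either, but 16 of these belonged to groups 1 to 5 and not to the trunk groups. Of 21 genes of Hox groups 6 to 13, which pattern the trunk, 3 passed the filter on low counts, and their summed level was 1.62 to 4.44 CPM at 5 dpf and 1.69 to 4.80 CPM at 4 dpf. The part that the position of the cut had in the digestive and kidney values was not tested.

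Metabolic genes rose across several lists. Of 57 tested cytochrome P450 genes, 36 rose, none fell and the median was 1.18, with 3 of the called members also in the digestive lists. These 57 were the part of 68 P450 genes in the table that passed the filter on low counts. The list level at 4 dpf was -0.17 to 0.44, so this share too may in part be set by the filter. The xenobiotic enzyme gene cyp1a, induced through the aryl hydrocarbon receptor, had 2.43, 11.4 and 23.3 CPM at 5 dpf, against 0.164, 1.11 and 2.79 CPM at 4 dpf (log2 fold change 3.11 ± 0.46, edgeR adjusted p = 2.7e-06). The gene cyp3a65 had 78.3, 235 and 366 CPM at 5 dpf, against 7.47, 11.5 and 18.3 CPM at 4 dpf (log2 fold change 4.25 ± 0.48, edgeR adjusted p = 1.3e-08). The ages overlapped slightly for cyp1a and not for cyp3a65. The retinoic acid degrading gene cyp26a1 was not called, at 2.41, 4.28 and 5.71 CPM at 5 dpf, against 3.87, 4.82 and 5.33 CPM at 4 dpf (log2 fold change -0.18 ± 0.28, edgeR adjusted p = 0.73). The reductase gene porb, which passes electrons to these enzymes and was in no list, had 67.0, 137 and 173 CPM at 5 dpf, against 24.4, 30.7 and 44.2 CPM at 4 dpf (log2 fold change 1.99 ± 0.21, edgeR adjusted p = 1.5e-09).

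Of 49 tested glycolysis and gluconeogenesis genes, 19 rose and 3 fell, with 5 of the called members also in the digestive lists. The gluconeogenic gene pck1 had 16.1, 241 and 409 CPM at 5 dpf, against 1.69, 3.13 and 12.4 CPM at 4 dpf (log2 fold change 5.43 ± 0.68, edgeR adjusted p = 1.0e-07). The gene fbp1b had 2.31, 6.13 and 9.14 CPM at 5 dpf, against 0.164, 0.327 and 1.62 CPM at 4 dpf (log2 fold change 3.48 ± 0.44, edgeR adjusted p = 1.0e-07). The glucose-releasing gene g6pca.1 also rose (log2 3.49 ± 0.54, edgeR adjusted p = 5.8e-06). The glycolytic gene gapdh, often used as a constant standard, had 188, 529 and 772 CPM at 5 dpf, against 21.8, 41.4 and 63.6 CPM at 4 dpf (log2 fold change 3.51 ± 0.42, edgeR adjusted p = 2.9e-08), a difference of 11.4-fold without overlap. Without 4 dpf pool I the log2 fold change of fbp1b was 4.25. The genes that fell were hk1, the hexokinase of brain and most tissues (log2 -0.37 ± 0.13, edgeR adjusted p = 0.041), the neuronal glucose transporter gene slc2a3a (log2 -0.45 ± 0.15, edgeR adjusted p = 0.039) and pfkpa (log2 -0.45 ± 0.16, edgeR adjusted p = 0.041). The call of hk1 was lost without 5 dpf pools B, H or I or without 4 dpf pools A, F, G or H (edgeR adjusted p = 0.068 to 0.11). The slc2a3a call was lost without 5 dpf pools B, C, H or I or without 4 dpf pools A, F, G or H (edgeR adjusted p = 0.051 to 0.12). The pfkpa call was lost without 5 dpf pools B, C or I or without 4 dpf pools A, D, F, G or H (edgeR adjusted p = 0.055 to 0.094).

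Fatty acid oxidation and peroxisome proliferator-activated receptor (PPAR) genes rose in 21 of 42 members and fell in 1. The mitochondrial uncoupling protein gene ucp1 had 112, 354 and 472 CPM at 5 dpf, against 4.09, 6.01 and 13.2 CPM at 4 dpf (log2 fold change 5.47 ± 0.48, edgeR adjusted p = 2.0e-11). The gene ucp3 had 1.37, 3.24 and 4.86 CPM at 5 dpf, against 0.0376, 0.143 and 0.292 CPM at 4 dpf (log2 fold change 4.35 ± 0.49, edgeR adjusted p = 1.1e-08). Neither overlapped between the ages. The carnitine transferase gene cpt1b, of muscle type, had 6.88, 13.8 and 17.2 CPM at 5 dpf, against 2.97, 3.89 and 7.96 CPM at 4 dpf (log2 fold change 1.36 ± 0.24, edgeR adjusted p = 5.0e-05), and the receptor genes pparg (log2 1.12 ± 0.20, edgeR adjusted p = 6.4e-05) and pparaa (log2 0.93 ± 0.17, edgeR adjusted p = 0.00010) rose. The member that fell was fabp11a, a fatty acid binding protein gene (log2 -0.80 ± 0.25, edgeR adjusted p = 0.026). The call of fabp11a was lost without 5 dpf pools B or E or without 4 dpf pool H (edgeR adjusted p = 0.052 to 0.066). Not called were cpt1aa (log2 -0.31 ± 0.13, edgeR adjusted p = 0.12), pdk4 (log2 0.55 ± 0.25, edgeR adjusted p = 0.15) and the lipid droplet gene plin2 (log2 -0.59 ± 0.33, edgeR adjusted p = 0.24).

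Antioxidant genes under the regulator Nrf2 rose in 14 of 35 members and none fell, with 9 called without 5 dpf pool B or I. The conjugate exporter gene abcc2 had 31.8, 157 and 303 CPM at 5 dpf, against 10.2, 13.9 and 21.0 CPM at 4 dpf (log2 fold change 3.44 ± 0.36, edgeR adjusted p = 1.6e-09). The lipid peroxide reductase gene gpx4a had 85.1, 302 and 539 CPM at 5 dpf, against 17.7, 32.1 and 40.8 CPM at 4 dpf (log2 fold change 3.27 ± 0.55, edgeR adjusted p = 2.0e-05). The most used indicators of that pathway were not called. The glutathione synthesis gene gclc had 23.4, 25.6 and 27.3 CPM at 5 dpf, against 17.5, 21.7 and 24.3 CPM at 4 dpf (log2 fold change 0.25 ± 0.12, edgeR adjusted p = 0.15). The conjugating gene gstp1 had 16.5, 22.9 and 37.1 CPM at 5 dpf, against 19.4, 21.1 and 32.3 CPM at 4 dpf (log2 fold change 0.083 ± 0.34, edgeR adjusted p = 0.91). The heme oxygenase gene hmox1a had 0.324, 0.812 and 1.82 CPM at 5 dpf, against 0.333, 0.742 and 2.12 CPM at 4 dpf (log2 fold change -0.058 ± 0.36, edgeR adjusted p = 0.94). Cholesterol synthesis genes rose in 8 of 34 members, and 5 were called without 5 dpf pool B or I. The last-step reductase gene dhcr7 had 26.7, 45.8 and 63.7 CPM at 5 dpf, against 17.1, 18.6 and 20.9 CPM at 4 dpf (log2 fold change 1.30 ± 0.21, edgeR adjusted p = 1.2e-05). The squalene oxidizing gene sqlea had 7.03, 11.02 and 20.0 CPM at 5 dpf, against 4.25, 4.88 and 7.87 CPM at 4 dpf (log2 fold change 1.16 ± 0.25, edgeR adjusted p = 0.00084). The first committed enzyme gene hmgcra had 49.6, 57.7 and 73.4 CPM at 5 dpf, against 38.8, 43.0 and 57.8 CPM at 4 dpf (log2 fold change 0.39 ± 0.15, edgeR adjusted p = 0.080), called only without 4 dpf pool D (edgeR adjusted p = 0.032). In 5 dpf pool E the level of the P450, PPAR, Nrf2 and glucose lists was the lowest of the 6, as it was for the liver list. Pool E was also the lowest for the cholesterol, kidney, growth axis, thyroid, corticosteroid, ionocyte, endothelium, skeletal muscle and heart muscle lists, among others. The part of liver and gut RNA in all these lists was not tested.

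Hormone genes of the head and their targets were the next group. Growth hormone gene gh1, made by the pituitary, had 6.71, 12.8 and 19.7 CPM at 5 dpf, against 2.12, 3.89 and 4.96 CPM at 4 dpf (log2 fold change 1.85 ± 0.45, edgeR adjusted p = 0.0031). No 5 dpf pool reached down to the 4 dpf range. Of 11 tested pituitary genes, gh1 and the glycoprotein hormone subunit gene cga (log2 1.17 ± 0.37, edgeR adjusted p = 0.027) rose and the pituitary regulator gene lhx4 fell (log2 -0.60 ± 0.13, edgeR adjusted p = 0.00083). The call of cga was lost without 5 dpf pools B or I or without 4 dpf pools A or D (edgeR adjusted p = 0.053 to 0.071). Prolactin gene prl (log2 0.71 ± 0.54, edgeR adjusted p = 0.43) and pomca, the precursor of corticotropin (log2 1.18 ± 0.56, edgeR adjusted p = 0.16), were not called. Further along the growth axis 11 of 34 genes rose and 1 fell. The growth hormone receptor gene ghrb had 7.09, 12.8 and 15.7 CPM at 5 dpf, against 4.80, 5.31 and 7.08 CPM at 4 dpf (log2 fold change 1.03 ± 0.25, edgeR adjusted p = 0.0029). The carrier gene igfals, a liver target of the hormone, had 0.726, 2.20 and 2.51 CPM at 5 dpf, against 0, 0.0623 and 0.540 CPM at 4 dpf (log2 fold change 3.75 ± 0.60, edgeR adjusted p = 8.6e-06), and its log2 fold change was 5.07 without 4 dpf pool A. The insulin-like growth factor gene igf1 had 0.264, 0.747 and 1.30 CPM at 5 dpf, against 0.764, 1.00 and 1.20 CPM at 4 dpf (log2 fold change -0.36 ± 0.38, edgeR adjusted p = 0.59). Some of the risers bind or restrain this signal. The binding protein gene igfbp1b had 3.89, 15.3 and 30.1 CPM at 5 dpf, against 0.9497, 1.22 and 1.28 CPM at 4 dpf (log2 fold change 3.72 ± 0.57, edgeR adjusted p = 5.1e-06). The translation repressor gene eif4ebp3l had 22.1, 29.9 and 34.8 CPM at 5 dpf, against 8.29, 9.44 and 14.9 CPM at 4 dpf (log2 fold change 1.54 ± 0.24, edgeR adjusted p = 4.9e-06). Neither of these overlapped between the ages. The axis member that fell was the binding protein gene igfbp3 (log2 -0.60 ± 0.14, edgeR adjusted p = 0.0020).

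Thyroid genes rose in 6 of 18 members and fell in 1. Thyroglobulin gene tg, the hormone precursor protein, had 157, 225 and 295 CPM at 5 dpf, against 66.1, 77.2 and 112 CPM at 4 dpf (log2 fold change 1.41 ± 0.22, edgeR adjusted p = 8.6e-06). The iodide pump gene slc5a5 had 0.384, 0.555 and 0.663 CPM at 5 dpf, against 0.0475, 0.187 and 0.273 CPM at 4 dpf (log2 fold change 1.61 ± 0.46, edgeR adjusted p = 0.012). The gene duox, the oxidase needed to couple iodine, had 0.723, 1.93 and 2.23 CPM at 5 dpf, against 3.49, 3.88 and 4.21 CPM at 4 dpf (log2 fold change -1.18 ± 0.24, edgeR adjusted p = 0.00030), opposite in direction to tg. All 3 separated the ages without overlap. The deiodinase gene dio1 had 3.80, 6.19 and 11.9 CPM at 5 dpf, against 0.639, 1.20 and 1.85 CPM at 4 dpf (log2 fold change 2.42 ± 0.32, edgeR adjusted p = 3.9e-07). The gene dio3b had 3.20, 9.85 and 15.3 CPM at 5 dpf, against 0.873, 2.03 and 2.41 CPM at 4 dpf (log2 fold change 2.32 ± 0.32, edgeR adjusted p = 7.0e-07). Both rose, although dio1 can activate the hormone and dio3b inactivates it. The receptor gene tshr had 0.182, 0.467 and 0.603 CPM at 5 dpf, against 0.0413, 0.309 and 0.489 CPM at 4 dpf (log2 fold change 0.55 ± 0.44, edgeR adjusted p = 0.45). The plasma carrier gene ttr, also a liver gene, rose (log2 4.07 ± 0.74, edgeR adjusted p = 6.4e-05), with a log2 fold change of 4.69 without 4 dpf pool A.

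Genes that respond to corticosteroids rose in 11 of 18 members, none fell, and the median was 1.06, with 1 of the called members also in the digestive lists. The chaperone gene fkbp5, a widely used indicator of glucocorticoid signalling, had 67.1, 104 and 128 CPM at 5 dpf, against 26.6, 38.4 and 71.1 CPM at 4 dpf (log2 fold change 1.24 ± 0.28, edgeR adjusted p = 0.0013). The transcription factor gene klf9 had 9.10, 19.6 and 31.1 CPM at 5 dpf, against 2.23, 4.20 and 7.36 CPM at 4 dpf (log2 fold change 2.10 ± 0.43, edgeR adjusted p = 0.00037). The gene cebpd had 17.0, 25.3 and 56.5 CPM at 5 dpf, against 3.497, 5.27 and 8.75 CPM at 4 dpf (log2 fold change 2.37 ± 0.40, edgeR adjusted p = 2.4e-05). The ages overlapped for fkbp5 and not for klf9 and cebpd. The receptor gene nr3c1 itself had 31.8, 34.8 and 40.0 CPM at 5 dpf, against 31.7, 39.1 and 51.6 CPM at 4 dpf (log2 fold change -0.15 ± 0.16, edgeR adjusted p = 0.59). Immediate early genes, which cells switch on within minutes of a stimulus, rose in 9 of 29 members. The transcription factor gene egr4 had 20.0, 23.4 and 76.7 CPM at 5 dpf, against 6.13, 7.83 and 10.0 CPM at 4 dpf (log2 fold change 2.07 ± 0.51, edgeR adjusted p = 0.0030). The gene fosab had 26.0, 43.3 and 269 CPM at 5 dpf, against 11.6, 15.0 and 32.4 CPM at 4 dpf (log2 fold change 2.46 ± 0.70, edgeR adjusted p = 0.012). The highest 5 dpf pool was B for egr4, with 76.7 CPM, and E for fosab, with 269 CPM. The ages overlapped for fosab and not for egr4. The log2 fold change of fosab was 1.81 without 5 dpf pool E. The call of fosab was lost without 5 dpf pool E (edgeR adjusted p = 0.066), that of npas4a (log2 1.65 ± 0.50, edgeR adjusted p = 0.019) without 5 dpf pool E or without 4 dpf pool H (edgeR adjusted p = 0.056 to 0.079) and that of egr1 (log2 1.14 ± 0.34, edgeR adjusted p = 0.017) without 5 dpf pool E (edgeR adjusted p = 0.094).

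Clock genes moved in both directions. Of 46 tested members, 4 rose and 8 fell. In the clock loop the Bmal and Clock activators switch on Per, Cry and Rev-erb repressors, which in turn hold the activators down. Activators were among the genes that fell. The Bmal gene arntl2 had 6.01, 7.16 and 7.86 CPM at 5 dpf, against 11.2, 15.5 and 18.3 CPM at 4 dpf (log2 fold change -1.08 ± 0.13, edgeR adjusted p = 4.3e-08). The gene arntl1a had 6.16, 7.09 and 11.4 CPM at 5 dpf, against 11.3, 15.4 and 17.5 CPM at 4 dpf (log2 fold change -0.93 ± 0.16, edgeR adjusted p = 1.9e-05). Also lower were arntl1b (log2 -1.02 ± 0.22, edgeR adjusted p = 0.00091) and clocka (log2 -0.78 ± 0.22, edgeR adjusted p = 0.010). In arntl2 every 5 dpf pool lay below every 4 dpf pool. Rev-erb family genes nr1d4a (log2 -0.79 ± 0.23, edgeR adjusted p = 0.014) and nr1d4b (log2 -1.05 ± 0.30, edgeR adjusted p = 0.013) were lower too, unlike nr1d1 below. So were the nuclear receptor gene rorcb (log2 -1.30 ± 0.37, edgeR adjusted p = 0.013) and the repressor gene nfil3-5 (log2 -0.80 ± 0.15, edgeR adjusted p = 7.7e-05). The call of clocka was lost without 5 dpf pool B (edgeR adjusted p = 0.052). The nr1d4a call was lost without 4 dpf pool F (edgeR adjusted p = 0.080). The nr1d4b call was lost without 4 dpf pool F (edgeR adjusted p = 0.053). Other members rose. The Rev-erb gene nr1d1 had 85.7, 100.2 and 131 CPM at 5 dpf, against 44.9, 63.4 and 87.0 CPM at 4 dpf (log2 fold change 0.63 ± 0.15, edgeR adjusted p = 0.0027). The repressor gene bhlhe41 had 68.9, 85.7 and 98.3 CPM at 5 dpf, against 41.3, 49.4 and 60.0 CPM at 4 dpf (log2 fold change 0.77 ± 0.14, edgeR adjusted p = 4.9e-05). The gene nfil3-6 had 38.8, 88.0 and 118 CPM at 5 dpf, against 17.5, 18.7 and 20.4 CPM at 4 dpf (log2 fold change 2.11 ± 0.38, edgeR adjusted p = 5.4e-05). The fourth was bhlhe40 (log2 0.62 ± 0.21, edgeR adjusted p = 0.038). The call of bhlhe40 was lost without 5 dpf pools B, E, G or H or without 4 dpf pools G, H or I (edgeR adjusted p = 0.053 to 0.10). The light-linked period gene per1b had 208, 261 and 308 CPM at 5 dpf, against 176, 246 and 285 CPM at 4 dpf (log2 fold change 0.10 ± 0.13, edgeR adjusted p = 0.67). The labels used here give no hour of collection, so an effect of clock time cannot be told apart from that of age. Of 20 tested pineal genes 1 was called, crx, described with the eye, and none was called without 5 dpf pool B or I or 4 dpf pool D, F or H, and 2 without 5 dpf pool E or 4 dpf pool I. The melatonin enzyme gene aanat2 had 0.562, 1.00 and 1.17 CPM at 5 dpf, against 0.376, 0.849 and 1.58 CPM at 4 dpf (log2 fold change -0.036 ± 0.33, edgeR adjusted p = 0.96).

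**Figure D4:**
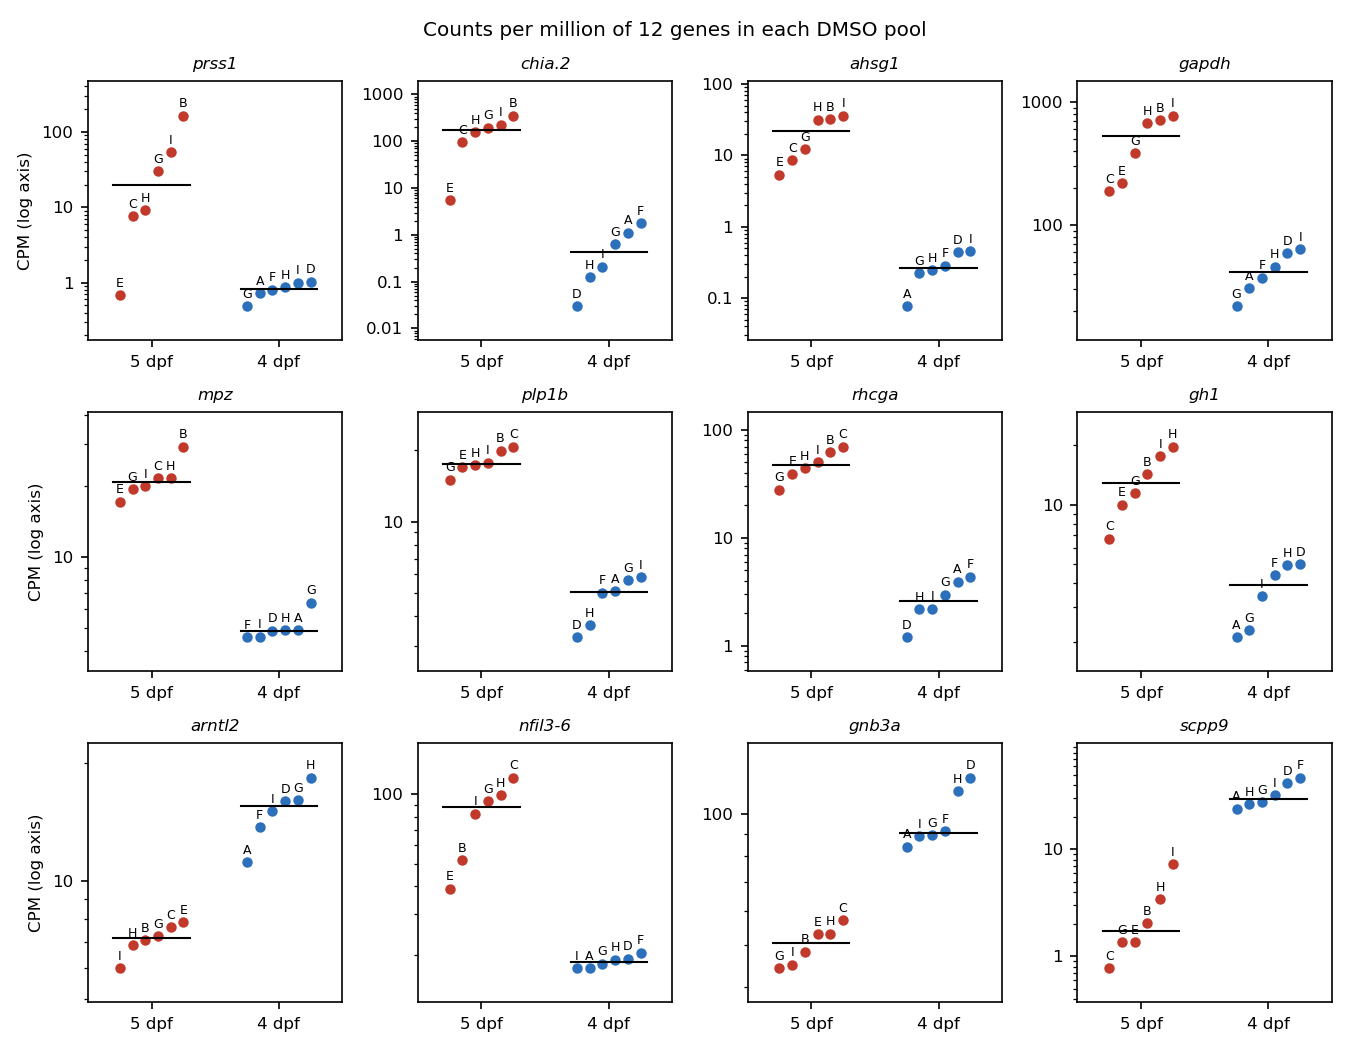
Points are the 6 DMSO pools of each age, marked with their letters, with 5 dpf (red) left of 4 dpf (blue); the vertical axis of each panel is CPM on a log scale of its own range, horizontal bars are medians, and a pool at 0 is drawn at 0.03 CPM. In prss1 the 5 dpf pools run from 0.683 to 164 CPM, while in arntl2, gnb3a and scpp9 all 5 dpf pools lie below all 4 dpf pools.

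In the brain, myelin genes rose. Of 25 tested myelin and oligodendrocyte genes, 10 rose, 1 fell, and 11 had every 5 dpf pool above every 4 dpf pool. Over all genes 5.15% did so. The compact myelin gene mpz had 17.2, 20.8 and 29.3 CPM at 5 dpf, against 4.56, 4.86 and 6.39 CPM at 4 dpf (log2 fold change 2.09 ± 0.19, edgeR adjusted p = 6.8e-11), a 4.27-fold difference. The proteolipid gene plp1b had 15.0, 17.5 and 20.6 CPM at 5 dpf, against 3.27, 5.06 and 5.83 CPM at 4 dpf (log2 fold change 1.91 ± 0.23, edgeR adjusted p = 2.9e-08). The myelin basic protein gene mbpa had 54.6, 71.0 and 89.5 CPM at 5 dpf, against 22.5, 29.7 and 39.0 CPM at 4 dpf (log2 fold change 1.22 ± 0.25, edgeR adjusted p = 0.00044). Its paralog mbpb had 49.0, 56.7 and 60.1 CPM at 5 dpf, against 25.6, 33.4 and 36.7 CPM at 4 dpf (log2 fold change 0.79 ± 0.15, edgeR adjusted p = 0.00018). The ages did not overlap in any of these 4 genes. The lipid hydroxylase gene fa2h (log2 0.97 ± 0.15, edgeR adjusted p = 7.2e-06), the junction gene cldnk (log2 1.67 ± 0.39, edgeR adjusted p = 0.0018) and the lineage regulator gene olig1 (log2 1.08 ± 0.26, edgeR adjusted p = 0.0023) rose as well. The single member that fell was gpm6bb (log2 -0.44 ± 0.15, edgeR adjusted p = 0.038), a proteolipid family gene that neurons also use. Its call was lost without 5 dpf pools B or H or without 4 dpf pools A, F, G or H (edgeR adjusted p = 0.055 to 0.11). Spread between pools was small, and 5 dpf pool E, set apart in the pancreas list, had 17.2 CPM of mpz and 17.0 CPM of plp1b. That mpz value was the lowest of the 5 dpf pools. The myelin list level of pool E, 3.58, was also the lowest, against 3.59 to 3.79 in the other 5 dpf pools. It lay above the 4 dpf range of 3.12 to 3.35.

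Glial genes of the astroglia list rose in 6 of 24 members and fell in 1. The prostaglandin synthase gene ptgdsb.2 had 20.0, 27.2 and 37.9 CPM at 5 dpf, against 5.07, 7.68 and 13.7 CPM at 4 dpf (log2 fold change 1.74 ± 0.23, edgeR adjusted p = 2.5e-07). Its neighbour copy ptgdsb.1 had 11.7, 20.4 and 35.0 CPM at 5 dpf, against 4.85, 7.08 and 13.9 CPM at 4 dpf (log2 fold change 1.35 ± 0.27, edgeR adjusted p = 0.00024). The radial glia gene fabp7a, a brain lipid binding protein of neural progenitors, had 21.2, 28.2 and 32.6 CPM at 5 dpf, against 42.4, 50.5 and 62.6 CPM at 4 dpf (log2 fold change -0.93 ± 0.18, edgeR adjusted p = 0.00013). The filament gene vim had 61.6, 73.2 and 87.2 CPM at 5 dpf, against 42.1, 46.8 and 54.3 CPM at 4 dpf (log2 fold change 0.61 ± 0.12, edgeR adjusted p = 0.00021). In fabp7a all 5 dpf pools were below, and in vim and ptgdsb.2 all were above, the 4 dpf pools. Common astroglial markers were not called. The filament gene gfap had 3.80, 6.30 and 7.30 CPM at 5 dpf, against 5.74, 6.32 and 7.83 CPM at 4 dpf (log2 fold change -0.13 ± 0.21, edgeR adjusted p = 0.73). The glutamate transporter gene slc1a2b had 1961, 3291 and 4154 CPM at 5 dpf, against 2149, 3349.8 and 3921 CPM at 4 dpf (log2 fold change -0.022 ± 0.26, edgeR adjusted p = 0.97).

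A part of the cell cycle genes fell, and a smaller part of the progenitor genes. Of 108 tested cell cycle and replication genes, 24 fell, 2 rose and the median was -0.31. The mitotic kinase gene plk1 had 19.4, 22.7 and 27.9 CPM at 5 dpf, against 33.8, 40.2 and 56.4 CPM at 4 dpf (log2 fold change -0.88 ± 0.16, edgeR adjusted p = 5.5e-05). The gene top2a, which untangles replicated DNA, had 48.6, 59.3 and 68.4 CPM at 5 dpf, against 73.7, 89.1 and 136 CPM at 4 dpf (log2 fold change -0.71 ± 0.16, edgeR adjusted p = 0.0011). Neither overlapped between the ages. The proliferation marker gene mki67 had 61.9, 74.5 and 114 CPM at 5 dpf, against 102, 112 and 154 CPM at 4 dpf (log2 fold change -0.62 ± 0.21, edgeR adjusted p = 0.042). The call of mki67 was lost without 5 dpf pools B, E, G, H or I or without 4 dpf pools A, D, H or I (edgeR adjusted p = 0.051 to 0.12). The replication clamp gene pcna had 48.3, 83.9 and 106 CPM at 5 dpf, against 61.8, 63.7 and 101 CPM at 4 dpf (log2 fold change 0.21 ± 0.25, edgeR adjusted p = 0.65), and its 4 dpf values were close together except in pool I, at 101 CPM. Without 4 dpf pool D, 16 list members in place of 26 were called. Risers were the clamp loader gene rfc3 (log2 1.43 ± 0.32, edgeR adjusted p = 0.0013) and the origin gene orc4 (log2 1.06 ± 0.25, edgeR adjusted p = 0.0022). Of 41 tested progenitor and neurogenesis genes 5 fell (12.2%, against 4.84% of all genes) and none rose, with 3 called without 4 dpf pool D. The median of that list was -0.16. The eye and brain regulator gene pax6a had 48.2, 52.0 and 65.3 CPM at 5 dpf, against 61.7, 84.8 and 113 CPM at 4 dpf (log2 fold change -0.69 ± 0.15, edgeR adjusted p = 0.0012). The Delta ligand gene dlb had 15.3, 19.1 and 22.2 CPM at 5 dpf, against 22.5, 26.1 and 33.2 CPM at 4 dpf (log2 fold change -0.48 ± 0.12, edgeR adjusted p = 0.0045). The RNA binding gene msi1 had 14.8, 17.3 and 20.5 CPM at 5 dpf, against 22.7, 26.4 and 31.8 CPM at 4 dpf (log2 fold change -0.61 ± 0.17, edgeR adjusted p = 0.0083). The ages overlapped for pax6a and not for dlb and msi1. Also lower were neurod4 (log2 -0.44 ± 0.13, edgeR adjusted p = 0.019) and sox11b (log2 -0.50 ± 0.16, edgeR adjusted p = 0.026), whose calls were lost without 5 dpf pool G or without 4 dpf pool D (edgeR adjusted p = 0.050 to 0.12) and without 5 dpf pools B or I or without 4 dpf pool D (edgeR adjusted p = 0.060 to 0.11). The stem cell gene sox2 had 37.8, 50.8 and 64.1 CPM at 5 dpf, against 51.3, 64.5 and 74.2 CPM at 4 dpf (log2 fold change -0.30 ± 0.17, edgeR adjusted p = 0.27), and the proneural genes ascl1a (log2 -0.028 ± 0.17, edgeR adjusted p = 0.94) and neurog1 (log2 -0.36 ± 0.19, edgeR adjusted p = 0.22) were not called either.

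Few genes of mature neurons were called, and those were lower. Of 25 neuron markers 2 fell, of 47 synaptic vesicle genes 3, of 36 glutamate receptor genes 2 and of 39 genes of GABA and glycine signalling 2, with none higher in these 4 lists. Leaving out 1 pool moved these counts to between 0 and 2 for neuron markers, 1 (without 5 dpf pool B) and 6 (without 5 dpf pool G or 4 dpf pool I) for synaptic vesicle genes, 1 and 2 for glutamate receptors and 2 and 5 for GABA and glycine genes. Shares lower ran from 5.13% to 8%, near the background of 4.84%, and medians ran from -0.35 to -0.27. The pan-neuronal gene elavl3 had 165, 228 and 340.3 CPM at 5 dpf, against 234, 338 and 394 CPM at 4 dpf (log2 fold change -0.40 ± 0.24, edgeR adjusted p = 0.28). The release gene snap25a had 133, 192 and 244 CPM at 5 dpf, against 137, 234 and 290.3 CPM at 4 dpf (log2 fold change -0.20 ± 0.23, edgeR adjusted p = 0.62). The growth cone gene gap43 had 39.9, 55.3 and 66.4 CPM at 5 dpf, against 64.2, 98.1 and 110.1 CPM at 4 dpf (log2 fold change -0.74 ± 0.25, edgeR adjusted p = 0.035). The call of gap43 was lost without 5 dpf pools B, C or H or without 4 dpf pools A, F, G or H (edgeR adjusted p = 0.058 to 0.087). The filament gene inab fell (log2 -0.47 ± 0.16, edgeR adjusted p = 0.035). The call of inab was lost without 5 dpf pools B, E, H or I or without 4 dpf pools A, F, G or H (edgeR adjusted p = 0.051 to 0.10). The vesicular glutamate transporter gene slc17a7a had 15.5, 18.7 and 20.5 CPM at 5 dpf, against 23.2, 30.5 and 32.6 CPM at 4 dpf (log2 fold change -0.66 ± 0.16, edgeR adjusted p = 0.0026), lower in every 5 dpf pool. The vesicle genes sv2bb (log2 -0.54 ± 0.16, edgeR adjusted p = 0.016) and cplx3b (log2 -0.69 ± 0.24, edgeR adjusted p = 0.043) fell, with calls lost without 5 dpf pool B (edgeR adjusted p = 0.056) and without 5 dpf pools B, H or I or without 4 dpf pools A, F, G or H (edgeR adjusted p = 0.070 to 0.15). Receptor genes that fell were grm6b, described with the retina, grik1b (log2 -0.45 ± 0.14, edgeR adjusted p = 0.027), whose call was lost without 5 dpf pools B or I or without 4 dpf pools D or F (edgeR adjusted p = 0.054 to 0.092), the glycine receptor gene glra4b (log2 -0.96 ± 0.25, edgeR adjusted p = 0.0062) and gabrr3a, a GABA receptor gene typical of retina (log2 -0.92 ± 0.26, edgeR adjusted p = 0.0094). The subunit genes grin1a (log2 0.042 ± 0.23, edgeR adjusted p = 0.93) and gad1b (log2 0.17 ± 0.21, edgeR adjusted p = 0.64), for glutamate reception and GABA synthesis, were not called. The synaptic list level at 5 dpf was lowest in pool B, at 5.03, and highest in pool G, at 5.62. At 4 dpf it was lowest in pool I, at 5.22, and highest in pool G, at 5.88. Pool B had the highest intestinal and pancreas levels at 5 dpf and pool I the highest liver level at 4 dpf, and the part of that RNA in the lower neuronal shares was not tested.

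Among channel genes 3 of 49 rose and 1 fell, so that 8.16% were called, against 14.2% of all genes. The muscle sodium channel gene scn4ab had 18.7, 28.0 and 37.5 CPM at 5 dpf, against 9.79, 13.5 and 20.2 CPM at 4 dpf (log2 fold change 0.99 ± 0.24, edgeR adjusted p = 0.0023). The gene kcnv2b, a modulator of photoreceptor potassium current in other vertebrates, had 2.35, 3.83 and 5.82 CPM at 5 dpf, against 0.764, 1.02 and 2.62 CPM at 4 dpf (log2 fold change 1.67 ± 0.35, edgeR adjusted p = 0.00059). The sodium channel genes scn4bb (log2 1.92 ± 0.42, edgeR adjusted p = 0.00097) and scn12aa (log2 -0.73 ± 0.18, edgeR adjusted p = 0.0031) moved in opposite directions. Hypothalamic peptide genes rose in 3 of 33 tested members (9.09%, near the 9.34% of all genes that rose), and 5 were called without 4 dpf pool D. Fold changes were positive in 29 of the 33, with a median of 0.62, against -0.0042 over all genes. The list level was 0.798 or above in the 5 dpf pools and 0.729 or below in the 4 dpf pools. The 3 genes that rose were pmchl, a melanin-concentrating hormone gene (log2 2.20 ± 0.56, edgeR adjusted p = 0.0040), and the feeding peptide genes cart2 and ccka. The gene cart2 had 2.25, 2.95 and 3.74 CPM at 5 dpf, against 0.333, 1.19 and 1.85 CPM at 4 dpf (log2 fold change 1.37 ± 0.36, edgeR adjusted p = 0.0066). The gene ccka had 5.94, 7.26 and 10.2 CPM at 5 dpf, against 3.01, 5.17 and 5.84 CPM at 4 dpf (log2 fold change 0.75 ± 0.21, edgeR adjusted p = 0.011). In all 3 the ages did not overlap. Of 30 monoamine genes 2 rose (6.67%, against 9.34% of all genes). They were comta (log2 0.73 ± 0.22, edgeR adjusted p = 0.016) and the noradrenaline enzyme gene dbh (log2 1.01 ± 0.31, edgeR adjusted p = 0.024), whose calls were lost without 5 dpf pool H (edgeR adjusted p = 0.078) and without 5 dpf pools B or I or without 4 dpf pools A, D or I (edgeR adjusted p = 0.050 to 0.13). The dopamine enzyme gene th (log2 -0.22 ± 0.24, edgeR adjusted p = 0.60), the serotonin enzyme gene tph2 (log2 0.22 ± 0.50, edgeR adjusted p = 0.83) and the dopamine transporter gene slc6a3 (log2 0.35 ± 0.24, edgeR adjusted p = 0.38) were not called.

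In the eye, genes of inner retinal neurons fell. Of 22 tested interneuron and ganglion cell genes 7 fell, none rose, and the median of -0.42 was the lowest of the 62 lists in DMSO. Bipolar cell genes led. The receptor gene grm6b had 9.89, 10.8 and 17.3 CPM at 5 dpf, against 14.5, 26.5 and 31.6 CPM at 4 dpf (log2 fold change -1.02 ± 0.20, edgeR adjusted p = 0.00018). The G protein gene gnb3a had 44.3, 50.7 and 57.0 CPM at 5 dpf, against 84.2, 90.5 and 121 CPM at 4 dpf (log2 fold change -0.97 ± 0.17, edgeR adjusted p = 2.8e-05). The homeobox gene vsx1 had 41.8, 49.6 and 68.1 CPM at 5 dpf, against 84.9, 87.5 and 106 CPM at 4 dpf (log2 fold change -0.85 ± 0.20, edgeR adjusted p = 0.0018). In gnb3a and vsx1 no pool of one age reached the other age, while grm6b overlapped. The amacrine cell gene tfap2c (log2 -0.76 ± 0.15, edgeR adjusted p = 0.00020) and isl1 (log2 -0.73 ± 0.14, edgeR adjusted p = 0.00023) and the ganglion cell regulator gene pou4f2 (log2 -0.42 ± 0.14, edgeR adjusted p = 0.038) fell as well. The pou4f2 call was lost without 5 dpf pools B, C or I or without 4 dpf pools A, D, F, G or H (edgeR adjusted p = 0.056 to 0.10). The ganglion cell gene rbpms2b had 13.3, 17.6 and 19.5 CPM at 5 dpf, against 17.5, 23.3 and 27.2 CPM at 4 dpf (log2 fold change -0.43 ± 0.17, edgeR adjusted p = 0.077), called only without 4 dpf pool I (edgeR adjusted p = 0.042). Photoreceptor regulators fell in 3 of 17 members. The gene mef2ca, also used in jaw cartilage, had 52.8, 69.0 and 89.7 CPM at 5 dpf, against 110.0, 119 and 145 CPM at 4 dpf (log2 fold change -0.82 ± 0.13, edgeR adjusted p = 9.7e-06). The gene six6b had 10.5, 12.6 and 19.3 CPM at 5 dpf, against 18.996, 22.9 and 26.8 CPM at 4 dpf (log2 fold change -0.79 ± 0.17, edgeR adjusted p = 0.00088). The cone and rod regulator gene crx fell (log2 -0.50 ± 0.17, edgeR adjusted p = 0.040). The call of crx was lost without 5 dpf pools B, C or I or without 4 dpf pools D, F or H (edgeR adjusted p = 0.062 to 0.13).

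Among visual pigment genes, 2 of 6 tested cone opsin genes rose. The red-sensitive gene opn1lw1 had 0.562, 1.13 and 2.55 CPM at 5 dpf, against 0.0950, 0.316 and 0.750 CPM at 4 dpf (log2 fold change 1.98 ± 0.41, edgeR adjusted p = 0.00044). The green-sensitive gene opn1mw2 had 6.83, 15.7 and 22.1 CPM at 5 dpf, against 4.09, 5.39 and 8.37 CPM at 4 dpf (log2 fold change 1.40 ± 0.31, edgeR adjusted p = 0.0011). Both overlapped between the ages. The ultraviolet-sensitive gene opn1sw1 had 6893, 9802 and 13268 CPM at 5 dpf, against 6229.9, 7805 and 8427 CPM at 4 dpf (log2 fold change 0.42 ± 0.20, edgeR adjusted p = 0.16). The blue-sensitive gene opn1sw2 had 707, 899.9 and 1181 CPM at 5 dpf, against 390.4, 683 and 1008 CPM at 4 dpf (log2 fold change 0.40 ± 0.31, edgeR adjusted p = 0.44). The red-sensitive gene opn1lw2 had 535, 648 and 789 CPM at 5 dpf, against 724, 877 and 905 CPM at 4 dpf (log2 fold change -0.35 ± 0.25, edgeR adjusted p = 0.39). The green-sensitive gene opn1mw1 had 142, 171 and 196 CPM at 5 dpf, against 203, 228 and 250.0 CPM at 4 dpf (log2 fold change -0.41 ± 0.15, edgeR adjusted p = 0.069). None of these 4 was called, opn1mw1 passing without 5 dpf pool C (edgeR adjusted p = 0.041), and the opn1lw and opn1mw genes are tandem copies that may share reads. Rod opsin gene rho had 6893, 8697 and 12418 CPM at 5 dpf, against 8160.5, 9249 and 12923 CPM at 4 dpf (log2 fold change -0.14 ± 0.33, edgeR adjusted p = 0.82). Of 22 rod transduction genes the arrestin gene sagb rose (log2 0.46 ± 0.16, edgeR adjusted p = 0.044) and the G protein gene gnb1b fell (log2 -0.43 ± 0.14, edgeR adjusted p = 0.028), calls that were lost without 5 dpf pools B, C, H or I or without 4 dpf pools A, F or G (edgeR adjusted p = 0.068 to 0.14) and without 5 dpf pools B or I or without 4 dpf pools D or H (edgeR adjusted p = 0.051 to 0.12). Of 23 cone transduction genes 1 rose, guca1d (log2 1.41 ± 0.40, edgeR adjusted p = 0.012), and 1 fell, the channel gene cnga3b (log2 -0.71 ± 0.21, edgeR adjusted p = 0.014). The cone transducin gene gnat2 had 1520.1, 1678 and 2400.3 CPM at 5 dpf, against 1607, 1956 and 2509 CPM at 4 dpf (log2 fold change -0.11 ± 0.17, edgeR adjusted p = 0.73).

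In the visual cycle, which regenerates the pigment, the retinol carrier gene rbp4l had 166, 283 and 424 CPM at 5 dpf, against 78.7, 106 and 134 CPM at 4 dpf (log2 fold change 1.39 ± 0.23, edgeR adjusted p = 1.5e-05), and the retinol dehydrogenase gene rdh12 rose (log2 0.79 ± 0.17, edgeR adjusted p = 0.00097). The isomerase gene rpe65a had 346, 479.9 and 778 CPM at 5 dpf, against 329, 446 and 590.2 CPM at 4 dpf (log2 fold change 0.21 ± 0.31, edgeR adjusted p = 0.71). Lens genes rose in 6 of 50 members (12%, against 9.34% of all genes) and 49 had positive fold changes, at a median of 0.36. The crystallin gene crygn1 had 3.25, 4.90 and 7.05 CPM at 5 dpf, against 1.38, 1.70 and 2.75 CPM at 4 dpf (log2 fold change 1.47 ± 0.34, edgeR adjusted p = 0.0014). The chaperone crystallin gene cryaa had 138, 216 and 287 CPM at 5 dpf, against 113, 154 and 206 CPM at 4 dpf (log2 fold change 0.46 ± 0.23, edgeR adjusted p = 0.18). The crygm2 genes are near-identical copies, so their single values are uncertain.

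Skeletal genes changed in a few members. Bone genes rose in 7 of 27 members and fell in 1. The bone matrix gene spp1 had 2.85, 5.79 and 7.05 CPM at 5 dpf, against 0.639, 1.25 and 2.499 CPM at 4 dpf (log2 fold change 2.00 ± 0.30, edgeR adjusted p = 3.9e-06). The matrix gene bglapl had 1.16, 1.90 and 2.29 CPM at 5 dpf, against 0.270, 0.479 and 0.865 CPM at 4 dpf (log2 fold change 1.79 ± 0.34, edgeR adjusted p = 0.00012). The osteoblast regulator gene sp7 had 2.40, 4.67 and 5.44 CPM at 5 dpf, against 1.47, 2.30 and 3.27 CPM at 4 dpf (log2 fold change 0.96 ± 0.26, edgeR adjusted p = 0.0078). The first 2 separated the ages and sp7 did not. The gene col10a1a, used in maturing cartilage and bone, had 707, 966 and 1062 CPM at 5 dpf, against 299, 444 and 670.1 CPM at 4 dpf (log2 fold change 1.04 ± 0.25, edgeR adjusted p = 0.0024). Cartilage matrix gene matn1 fell, 1173, 1859.7 and 2759 CPM at 5 dpf, against 2689, 3379 and 4257 CPM at 4 dpf (log2 fold change -0.83 ± 0.25, edgeR adjusted p = 0.021), with the call lost without 5 dpf pools G or I (edgeR adjusted p = 0.057 to 0.062). The main cartilage collagen gene col2a1a had 14306, 21888 and 24273 CPM at 5 dpf, against 18999, 22199 and 30597 CPM at 4 dpf (log2 fold change -0.18 ± 0.23, edgeR adjusted p = 0.66).

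Genes of the secretory calcium-binding phosphoprotein family, which line teeth and mineralizing surfaces in fish, moved in opposite directions. The gene scpp9 (chr1:43969797-43973069 in GRCz11) had 0.778, 1.71 and 7.28 CPM at 5 dpf, against 23.98, 29.9 and 46.8 CPM at 4 dpf (log2 fold change -3.61 ± 0.52, edgeR adjusted p = 1.4e-06), a level 12.2-fold lower at 5 dpf. Its log2 fold change was -4.24 without 5 dpf pool I. In the same list scpp5 had 4.66, 7.44 and 19.5 CPM at 5 dpf, against 0.413, 1.37 and 2.09 CPM at 4 dpf (log2 fold change 2.79 ± 0.41, edgeR adjusted p = 2.4e-06). The gene scpp7 had 0.784, 1.14 and 1.80 CPM at 5 dpf, against 0.188, 0.267 and 0.424 CPM at 4 dpf (log2 fold change 2.14 ± 0.44, edgeR adjusted p = 0.00034). The gene scpp1 had 0.726, 1.52 and 2.27 CPM at 5 dpf, against 0.289, 0.555 and 0.713 CPM at 4 dpf (log2 fold change 1.498 ± 0.43, edgeR adjusted p = 0.013). All 4 separated the ages without overlap, scpp9 downward and the others upward. The ameloblast-associated gene odam had 1.15, 2.72 and 6.30 CPM at 5 dpf, against 1.504, 2.03 and 2.95 CPM at 4 dpf (log2 fold change 0.49 ± 0.38, edgeR adjusted p = 0.44). Fibroblast matrix genes rose in 6 of 49 (12.2%, against 9.34% of all genes), and 3 were called without 5 dpf pool B, H or I or 4 dpf pool A, F, G or H. Fibronectin gene fn1b, which the liver also secretes, had 405, 839.6 and 1099.6 CPM at 5 dpf, against 159, 187 and 322 CPM at 4 dpf (log2 fold change 1.93 ± 0.25, edgeR adjusted p = 1.8e-07). The main collagen gene col1a1a had 6446, 7918 and 11629 CPM at 5 dpf, against 5926, 7741 and 12078 CPM at 4 dpf (log2 fold change 0.069 ± 0.27, edgeR adjusted p = 0.90).

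Muscle genes rose in 23 of 81 tested members and fell in 1. The fast light chain gene mylpfa had 1086, 2216 and 2768 CPM at 5 dpf, against 308, 487 and 745 CPM at 4 dpf (log2 fold change 2.03 ± 0.47, edgeR adjusted p = 0.0017). The calcium pump gene atp2a1l had 897, 1078 and 1596 CPM at 5 dpf, against 282, 432 and 699 CPM at 4 dpf (log2 fold change 1.37 ± 0.26, edgeR adjusted p = 0.00014). The calcium buffer gene pvalb4 had 54.7, 105 and 141 CPM at 5 dpf, against 18.2, 26.2 and 32.4 CPM at 4 dpf (log2 fold change 2.01 ± 0.42, edgeR adjusted p = 0.00052). None of the 3 overlapped between the ages. The mitochondrial creatine kinase gene ckmt2b had 219.9, 294 and 503 CPM at 5 dpf, against 106, 149 and 177 CPM at 4 dpf (log2 fold change 1.12 ± 0.20, edgeR adjusted p = 6.7e-05). The fast myosin gene myhz2 had 1009.7, 1259 and 1819.5 CPM at 5 dpf, against 798, 913 and 1297 CPM at 4 dpf (log2 fold change 0.43 ± 0.20, edgeR adjusted p = 0.15). The actin gene acta1b had 502, 834 and 1235 CPM at 5 dpf, against 927, 1195 and 1540.5 CPM at 4 dpf (log2 fold change -0.48 ± 0.29, edgeR adjusted p = 0.30). Neither was called. The member that fell was myhb (log2 -0.61 ± 0.20, edgeR adjusted p = 0.033), a myosin heavy chain gene. The call of myhb was lost without 5 dpf pools B, E, H or I or without 4 dpf pools D, F, G or I (edgeR adjusted p = 0.051 to 0.11). In place of 24, 14 or 15 muscle list members were called without 5 dpf pool B, H or I or 4 dpf pool G.

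Heart muscle genes rose in 11 of 26 and fell in 1, 12 calls that became 7 without 5 dpf pool H. The cardiac light chain gene cmlc1 had 4.91, 6.98 and 18.4 CPM at 5 dpf, against 1.62, 2.05 and 3.46 CPM at 4 dpf (log2 fold change 2.08 ± 0.39, edgeR adjusted p = 9.6e-05). The calcium pump gene atp2a2a had 196, 234 and 343 CPM at 5 dpf, against 79.3, 116 and 135 CPM at 4 dpf (log2 fold change 1.23 ± 0.26, edgeR adjusted p = 0.00065). The regulator gene gata5 had 3.597, 5.72 and 9.09 CPM at 5 dpf, against 0.908, 2.04 and 3.12 CPM at 4 dpf (log2 fold change 1.57 ± 0.25, edgeR adjusted p = 1.0e-05). The gene gata6 had 1.24, 3.78 and 6.29 CPM at 5 dpf, against 0.263, 0.914 and 1.42 CPM at 4 dpf (log2 fold change 2.13 ± 0.44, edgeR adjusted p = 0.00047), and gut and liver use both genes as well. The defining gene myl7 had 1.45, 2.04 and 3.71 CPM at 5 dpf, against 0.902, 1.04 and 1.75 CPM at 4 dpf (log2 fold change 0.88 ± 0.32, edgeR adjusted p = 0.052), called without 5 dpf pools B, E or G or without 4 dpf pools D or F (edgeR adjusted p = 0.033 to 0.049), and tbx5b fell (log2 -1.11 ± 0.34, edgeR adjusted p = 0.019). The call of tbx5b was lost without 5 dpf pool B (edgeR adjusted p = 0.071).

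Ionocytes are the salt-transporting cells of skin and gill, and part of their gene list rose. Of 43 tested ionocyte and mucous cell genes 17 rose, none fell and 11 separated the ages upward, as 5.15% of all genes did. The ammonia channel gene rhcga had 27.9, 47.4 and 69.8 CPM at 5 dpf, against 1.20, 2.59 and 4.37 CPM at 4 dpf (log2 fold change 4.11 ± 0.48, edgeR adjusted p = 1.8e-08). The gene rhcgb had 6.79, 10.9 and 16.6 CPM at 5 dpf, against 1.24, 1.47 and 3.71 CPM at 4 dpf (log2 fold change 2.61 ± 0.26, edgeR adjusted p = 5.6e-10). The gene rhcgl1 had 1.00, 2.38 and 3.86 CPM at 5 dpf, against 0, 0.0401 and 0.0826 CPM at 4 dpf (log2 fold change 5.90 ± 0.68, edgeR adjusted p = 1.4e-08). The lowest 5 dpf pool of each lay above the highest 4 dpf pool. The sodium-chloride cotransporter gene slc12a10.2 had 25.5, 33.3 and 43.1 CPM at 5 dpf, against 12.2, 14.0 and 17.1 CPM at 4 dpf (log2 fold change 1.24 ± 0.19, edgeR adjusted p = 6.6e-06), and the lineage regulator genes foxi3a (log2 1.15 ± 0.26, edgeR adjusted p = 0.0015) and foxi3b (log2 0.96 ± 0.21, edgeR adjusted p = 0.00098) rose. The proton pump gene atp6v1aa had 450.1, 597 and 740.1 CPM at 5 dpf, against 523, 578 and 648 CPM at 4 dpf (log2 fold change 0.034 ± 0.19, edgeR adjusted p = 0.93). The carbonic anhydrase gene ca2 had 11.2, 13.9 and 23.0 CPM at 5 dpf, against 15.5, 16.8 and 20.8 CPM at 4 dpf (log2 fold change -0.20 ± 0.28, edgeR adjusted p = 0.70). Neither was called. Keratin and epidermis genes rose in 15 of 53, with none lower. The keratin gene krt1-19d had 229, 361 and 479 CPM at 5 dpf, against 70.9, 90.3 and 145 CPM at 4 dpf (log2 fold change 1.92 ± 0.26, edgeR adjusted p = 4.3e-07). The gene krt97 had 290.5, 442 and 562 CPM at 5 dpf, against 157, 185 and 211 CPM at 4 dpf (log2 fold change 1.25 ± 0.23, edgeR adjusted p = 6.9e-05). Neither overlapped between the ages. The main larval skin keratin gene krt4 had 4050.4, 6005 and 8384 CPM at 5 dpf, against 4963, 5313 and 8583 CPM at 4 dpf (log2 fold change -0.042 ± 0.24, edgeR adjusted p = 0.94), and krt5 was not called either (log2 -0.30 ± 0.26, edgeR adjusted p = 0.50).

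Hatching gland genes, used earlier to leave the chorion, were at trace levels. The hatching enzyme gene he1.1 had 0, 0.121 and 0.427 CPM at 5 dpf, against 0, 0.436 and 0.9501 CPM at 4 dpf (log2 fold change -1.73 ± 0.83, edgeR adjusted p = 0.17), and the called member of that list was cd63 (log2 1.27 ± 0.32, edgeR adjusted p = 0.0038), a membrane gene of lysosomes in many cells, with 2 called without 5 dpf pool E or G or 4 dpf pool I. Of the sensory lists, that of hair cells and otoliths moved in both directions. Of 33 hair cell and otolith genes 6 rose and 2 fell. In place of these 8, 4 or 5 were called without 5 dpf pool B or I or 4 dpf pool A, F, G or H. Called members included the hair bundle gene loxhd1b (log2 1.30 ± 0.33, edgeR adjusted p = 0.0048) and the calcium buffer gene calb2b, which neurons also use, with 193, 229 and 275 CPM at 5 dpf, against 276, 380.4 and 433 CPM at 4 dpf (log2 fold change -0.69 ± 0.16, edgeR adjusted p = 0.0012). The synaptic gene otofb had 27.2, 42.5 and 49.8 CPM at 5 dpf, against 14.2, 19.2 and 43.2 CPM at 4 dpf (log2 fold change 0.75 ± 0.23, edgeR adjusted p = 0.020). The call of otofb was lost without 5 dpf pools B, C or H or without 4 dpf pools A, F, G or H (edgeR adjusted p = 0.051 to 0.072). The motor gene myo6b fell (log2 -0.52 ± 0.14, edgeR adjusted p = 0.0083). The call of myo6b was lost without 4 dpf pool D (edgeR adjusted p = 0.055). The olfactory gene stoml3b had 0.342, 2.88 and 8.15 CPM at 5 dpf, against 0.0752, 0.254 and 0.330 CPM at 4 dpf (log2 fold change 3.95 ± 0.56, edgeR adjusted p = 1.2e-06), the only called member of 16, while the marker genes ompb (log2 -0.42 ± 0.28, edgeR adjusted p = 0.36) and ompa (log2 0.94 ± 0.36, edgeR adjusted p = 0.071) were not called, the second passing without 4 dpf pool D (edgeR adjusted p = 0.035).

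Of the immune lists, 34.8% of neutrophil, 29.4% of T cell and thymus, 22.7% of interferon and antigen presentation and 21.7% of macrophage and microglia genes were called, against 14.2% of all genes and 8.7% of red cell genes. The lymphocyte receptor recombination gene rag1 had 5.12, 5.37 and 6.51 CPM at 5 dpf, against 2.12, 2.88 and 4.37 CPM at 4 dpf (log2 fold change 0.89 ± 0.18, edgeR adjusted p = 0.00027), without overlap. The thymus regulator gene foxn1 had 0.255, 0.581 and 0.687 CPM at 5 dpf, against 0.523, 0.767 and 1.69 CPM at 4 dpf (log2 fold change -0.69 ± 0.35, edgeR adjusted p = 0.19). Of 17 T cell and thymus genes 5 rose: rag1, coro1a, the receptor kinase gene zap70 (log2 1.25 ± 0.38, edgeR adjusted p = 0.018), the homing receptor gene ccr9a (log2 1.47 ± 0.46, edgeR adjusted p = 0.025) and its ligand gene ccl25a (log2 0.72 ± 0.25, edgeR adjusted p = 0.044). Without 5 dpf pool B or I or 4 dpf pool H, 3 of the 5 were called. The zap70 call was lost without 5 dpf pools B or I (edgeR adjusted p = 0.051 to 0.055). The ccr9a call was lost without 5 dpf pools B or C or without 4 dpf pool H (edgeR adjusted p = 0.059 to 0.14). The ccl25a call was lost without 5 dpf pools E, G, H or I or without 4 dpf pools A, D, F, G or H (edgeR adjusted p = 0.051 to 0.11). Of 23 neutrophil genes 7 rose and 1 fell, with a median of 0.57. Among those that rose were coro1a, the myeloid and liver regulator gene cebpa (log2 1.00 ± 0.20, edgeR adjusted p = 0.00026) and cpa5, a carboxypeptidase gene that is also in the exocrine pancreas list, and the member that fell was irg1l. The neutrophil peroxidase gene mpx had 29.9, 36.6 and 54.4 CPM at 5 dpf, against 20.3, 28.8 and 37.9 CPM at 4 dpf (log2 fold change 0.47 ± 0.20, edgeR adjusted p = 0.10). The macrophage gene mpeg1.1 had 0.844, 1.72 and 2.27 CPM at 5 dpf, against 1.20, 1.497 and 2.37 CPM at 4 dpf (log2 fold change -0.12 ± 0.33, edgeR adjusted p = 0.86). Neither was called. The leukocyte actin-regulating gene coro1a, counted in both the T cell and the neutrophil list, had 10.6, 21.2 and 32.2 CPM at 5 dpf, against 4.40, 5.05 and 10.7 CPM at 4 dpf (log2 fold change 1.86 ± 0.34, edgeR adjusted p = 7.5e-05). The gene irg1l (chr14:11427052-11430611 in GRCz11), induced in epithelium and macrophages by inflammation, had 2.21, 6.84 and 12.2 CPM at 5 dpf, against 13.3, 61.4 and 93.1 CPM at 4 dpf (log2 fold change -3.03 ± 0.56, edgeR adjusted p = 9.6e-05), and was lower in every 5 dpf pool. Of 23 macrophage and microglia genes 5 rose, and 3 were called without 5 dpf pool B, H or I or 4 dpf pool A, G or H. They were the lipoprotein gene apoeb, of microglia and yolk cells, with 128, 241 and 339 CPM at 5 dpf, against 91.0, 98.8 and 163 CPM at 4 dpf (log2 fold change 1.13 ± 0.26, edgeR adjusted p = 0.0013), the granulin genes grn1 (log2 3.15 ± 0.91, edgeR adjusted p = 0.013) and grna (log2 0.80 ± 0.26, edgeR adjusted p = 0.028), the lysosomal protease gene ctss2.2 (log2 1.44 ± 0.42, edgeR adjusted p = 0.015) and the chemokine gene ccl34b.1 (log2 1.63 ± 0.55, edgeR adjusted p = 0.039). Of these calls grn1 was lost without 5 dpf pool I (edgeR adjusted p = 0.052), grna without 5 dpf pools B or H or without 4 dpf pools A, G, H or I (edgeR adjusted p = 0.051 to 0.089), ctss2.2 without 4 dpf pool H (edgeR adjusted p = 0.051) and ccl34b.1 without 5 dpf pools B, H or I or without 4 dpf pools A, F, G or I (edgeR adjusted p = 0.064 to 0.16). Without 4 dpf pool G the log2 fold change of grn1 was 3.97. In the interferon and antigen presentation list 4 of 22 rose and 1 fell, with 3 in place of 5 called without 5 dpf pool B or 4 dpf pool G or H. The complement genes c3a.6 (log2 2.80 ± 0.44, edgeR adjusted p = 7.2e-06) and c3a.1 are also liver genes, and the others were the peptide loading gene tapbp.1 (log2 1.05 ± 0.26, edgeR adjusted p = 0.0037), the cytokine feedback gene socs3b (log2 0.53 ± 0.19, edgeR adjusted p = 0.044) and the falling tapbpl (log2 -0.62 ± 0.19, edgeR adjusted p = 0.021). The call of socs3b was lost without 5 dpf pools B, C, G, H or I or without 4 dpf pools D, F, G, H or I (edgeR adjusted p = 0.051 to 0.10). The tapbpl call was lost without 5 dpf pool B or without 4 dpf pools A, G or H (edgeR adjusted p = 0.052 to 0.065).

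Of 23 tested red cell genes, hbbe2 (log2 0.99 ± 0.34, edgeR adjusted p = 0.040) and the ammonia channel gene rhag (log2 0.88 ± 0.20, edgeR adjusted p = 0.0017) rose, the hbbe2 call being lost without 5 dpf pools B, H or I or without 4 dpf pools A, F, G or H (edgeR adjusted p = 0.053 to 0.21). The globin gene hbae1.1 had 5.30, 8.15 and 14.2 CPM at 5 dpf, against 2.11, 5.86 and 14.3 CPM at 4 dpf (log2 fold change 0.47 ± 0.43, edgeR adjusted p = 0.53), and the 6 other tested globin genes, hbae1.3, hbae3, hbae5, hbbe1.1, hbbe1.2 and hbbe1.3, had log2 fold changes from -0.67 to 0.47 and were not called. These copies may share reads. Endothelial genes rose in 5 of 36 and fell in 2 (19.4% called, against 14.2% of all genes). The barrier lipid transporter gene mfsd2aa had 2.06, 2.20 and 2.44 CPM at 5 dpf, against 3.75, 4.91 and 6.13 CPM at 4 dpf (log2 fold change -1.12 ± 0.15, edgeR adjusted p = 5.1e-07). The efflux pump gene abcb4, which gut and liver also use, had 14.3, 31.9 and 50.9 CPM at 5 dpf, against 7.52, 11.3 and 13.2 CPM at 4 dpf (log2 fold change 1.56 ± 0.19, edgeR adjusted p = 8.7e-08). In mfsd2aa all 5 dpf pools lay below the 4 dpf pools. The other risers were vwf (log2 1.47 ± 0.30, edgeR adjusted p = 0.00036), plvapa (log2 1.64 ± 0.43, edgeR adjusted p = 0.0063), sox7 (log2 0.58 ± 0.19, edgeR adjusted p = 0.028) and flt1 (log2 0.57 ± 0.19, edgeR adjusted p = 0.029), and the other gene that fell was the lymphatic and liver regulator prox1a (log2 -0.53 ± 0.14, edgeR adjusted p = 0.0061). Calls were lost in sox7 without 5 dpf pools B or H or without 4 dpf pools A or G (edgeR adjusted p = 0.067 to 0.13) and flt1 without 5 dpf pools B or H or without 4 dpf pools F, G or H (edgeR adjusted p = 0.079 to 0.11). The receptor gene kdrl had 23.7, 27.2 and 33.9 CPM at 5 dpf, against 16.9, 19.3 and 26.7 CPM at 4 dpf (log2 fold change 0.45 ± 0.17, edgeR adjusted p = 0.062), called only without 4 dpf pool I (edgeR adjusted p = 0.026). Of 31 pigment cell genes 4 rose and 1 fell (16.1% called, near the 14.2% of all genes), with 3 in place of 5 called without 5 dpf pool B. The purine enzyme gene xdh, which liver also expresses, had 3.42, 10.3 and 15.6 CPM at 5 dpf, against 0.702, 1.27 and 3.58 CPM at 4 dpf (log2 fold change 2.69 ± 0.42, edgeR adjusted p = 7.4e-06). The gene impdh1b had 20.5, 22.7 and 25.6 CPM at 5 dpf, against 32.3, 37.0 and 39.2 CPM at 4 dpf (log2 fold change -0.65 ± 0.14, edgeR adjusted p = 0.00084). The genes tfec (log2 0.80 ± 0.24, edgeR adjusted p = 0.016), pnp4a (log2 0.79 ± 0.24, edgeR adjusted p = 0.017) and slc45a2 (log2 1.04 ± 0.33, edgeR adjusted p = 0.026) rose. Calls were lost in tfec without 5 dpf pool H (edgeR adjusted p = 0.054), pnp4a without 5 dpf pools B or C or without 4 dpf pool H (edgeR adjusted p = 0.051 to 0.065) and slc45a2 without 5 dpf pools B or I or without 4 dpf pools A, F or G (edgeR adjusted p = 0.059 to 0.090). The melanosome gene pmela had 336, 409 and 583 CPM at 5 dpf, against 335, 462 and 591 CPM at 4 dpf (log2 fold change -0.070 ± 0.25, edgeR adjusted p = 0.89).

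Housekeeping lists had smaller shares called than the 14.2% of all genes. They were 6.1% for ribosomal proteins, 6.98% for nuclear oxidative phosphorylation, 7.69% for the mitochondrial genome and 13.3% for heat shock genes. Ribosomal protein genes were called, all higher, in 5 of 82, although 78 had positive fold changes with a median of 0.47. Leaving out 5 dpf pool B, H or I or 4 dpf pool A, F or G gave 3 calls, and leaving out 5 dpf pool C gave 8. Their list level ran from 6.94 to 8.28 at 5 dpf and from 6.57 to 7.72 at 4 dpf, and the ages overlapped. The gene rpl5b rose, 42.1, 67.2 and 98.7 CPM at 5 dpf, against 30.5, 37.6 and 40.7 CPM at 4 dpf (log2 fold change 0.93 ± 0.22, edgeR adjusted p = 0.0026), as did rps27.2, rps8a, rpl17 and rpl7a. Calls were lost in rpl17 without 5 dpf pools B, H or I or without 4 dpf pools A, F or G (edgeR adjusted p = 0.052 to 0.11) and rpl7a without 5 dpf pools B, H or I or without 4 dpf pools A, F, G or I (edgeR adjusted p = 0.067 to 0.16). Nuclear genes of oxidative phosphorylation were called, all higher, in 6 of 86, and in 3 without 5 dpf pool B, H or I or 4 dpf pool G. Fold changes were positive in 73 of the 86, with a median of 0.33, against -0.0042 over all genes. The complex I gene ndufs8a had 19.3, 38.8 and 51.0 CPM at 5 dpf, against 8.38, 13.2 and 17.0 CPM at 4 dpf (log2 fold change 1.48 ± 0.27, edgeR adjusted p = 8.1e-05). Of 13 genes of the mitochondrial genome, mt-co3 alone was called, with 2840.5, 3159 and 5410.1 CPM at 5 dpf, against 1446, 1782 and 2867 CPM at 4 dpf (log2 fold change 0.86 ± 0.27, edgeR adjusted p = 0.024). The call of mt-co3 was lost without 5 dpf pool B or without 4 dpf pools A, G or I (edgeR adjusted p = 0.051 to 0.092). The other mitochondrial genes had log2 fold changes from -0.13 to 0.69, and were mt-atp6, mt-atp8, mt-co1, mt-co2, mt-cyb, mt-nd1, mt-nd2, mt-nd3, mt-nd4, mt-nd4l, mt-nd5 and mt-nd6. Heat shock genes were balanced, 3 higher and 3 lower of 45. The small chaperone genes hspb6 (log2 1.19 ± 0.22, edgeR adjusted p = 7.1e-05) and hspb1 (log2 1.10 ± 0.26, edgeR adjusted p = 0.0023) and the mitochondrial hspd1 (log2 0.48 ± 0.14, edgeR adjusted p = 0.018) rose, while the regulator gene hsf1 (log2 -0.44 ± 0.12, edgeR adjusted p = 0.0075) and the endoplasmic reticulum genes dnajb11 (log2 -0.58 ± 0.16, edgeR adjusted p = 0.0090) and hsp90b1 (log2 -0.50 ± 0.17, edgeR adjusted p = 0.037) fell. Calls were lost in hspd1 without 5 dpf pools B, H or I or without 4 dpf pool G (edgeR adjusted p = 0.050 to 0.077) and hsp90b1 without 5 dpf pools B, G, H or I or without 4 dpf pools A, F or I (edgeR adjusted p = 0.060 to 0.081). The stress gene hsp70.1 had 12.8, 15.5 and 20.1 CPM at 5 dpf, against 13.1, 17.2 and 29.2 CPM at 4 dpf (log2 fold change -0.25 ± 0.31, edgeR adjusted p = 0.66).

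The same step from 4 to 5 dpf can be read in the PFOS pools, which share no library with the DMSO pools. Age called 2553 genes (12.8%) at 0.88 µM, 3037 (15.2%) at 1.57 µM and 2477 (12.4%) at 2.8 µM PFOS. Without 5 dpf pool H the 0.88 µM count was 1693, and without 5 dpf pool D the 1.57 µM count was 1878. Of the 2838 genes called in DMSO, 1683 were called in the same direction at 0.88 µM, 1627 at 1.57 µM and 1568 at 2.8 µM, and none in the opposite direction. These were 59.3%, 57.3% and 55.3% of the DMSO calls and 65.9%, 53.6% and 63.3% of the genes called at the 3 concentrations. The sign was the same for 98.8%, 98.2% and 98.0% of the 2838, while over all 20021 genes it was the same for 77.1%, 71.3% and 70.6%. In all 4 arms 789 genes were called higher and 315 lower. The test of the difference itself, the age change in PFOS minus the age change in DMSO, called no gene at any concentration with edgeR's quasi-likelihood test, with 495, 980 and 765 genes at an unadjusted p under 0.05. The lowest edgeR adjusted p was 1.00, 0.74 and 0.95 in that order. By DESeq2 the difference was called for 6 genes at 1.57 µM and for none at 0.88 and 2.8 µM. By limma voom with quality weights it was called for 1, 2 and 701 genes at 0.88, 1.57 and 2.8 µM. The absence of calls therefore depends on the method, most of all at 2.8 µM.

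Digestive lists had the same sign at every concentration. The median log2 fold change of the exocrine pancreas list was 4.86, 2.29 and 6.17 at 0.88, 1.57 and 2.8 µM PFOS, against 7.47 in DMSO. For the intestine it was 1.88, 2.06 and 2.42, against 2.96 in DMSO, and for the liver 1.67, 1.78 and 2.65, against 2.90. Myelin genes stood at 0.25, 0.44 and 0.18, against 0.44 in DMSO, and mpz itself at 1.94, 2.36 and 1.96, against 2.09. Cell cycle genes stood at -0.34, -0.46 and -0.60, against -0.31, and ionocyte genes at 0.41, 0.31 and 0.53, against 0.66. Other list medians were not alike. Skeletal muscle stood at 0.18, -0.10 and 0.27, against 0.51 in DMSO, bone at -0.063, -0.053 and -0.018, against 0.28, and synaptic vesicle genes at -0.13, 0.028 and 0.077, against -0.30. Retinal interneuron and ganglion cell genes stood at -0.17, -0.18 and -0.22, against -0.42 in DMSO. Lens genes stood at 0.43, 0.34 and -0.030, against 0.36. These differences between list medians were not tested. For single genes, the log2 fold change of slc22a2 was 2.98, 2.55 and 2.96 at the 3 concentrations, against 3.34 in DMSO, that of arntl2 -1.06, -1.31 and -1.01, against -1.08, that of scpp9 -4.60, -3.61 and -4.53, against -3.61, and that of gh1 2.64, 2.83 and 1.65, against 1.85.

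**Figure D5:**
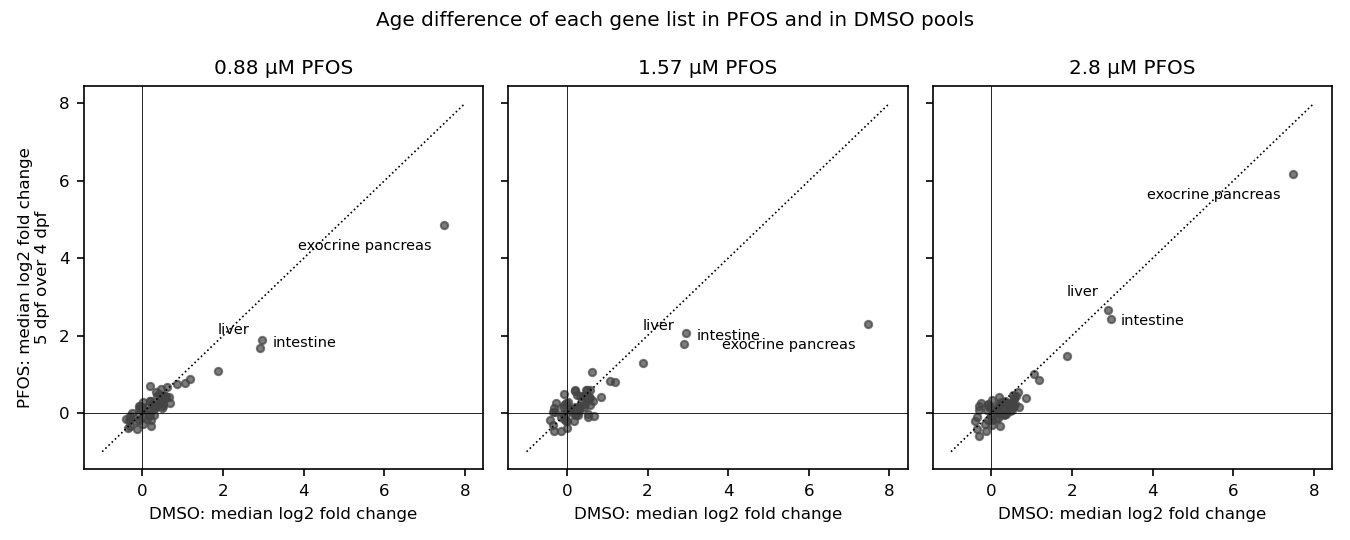
Each point is 1 of the 62 gene lists. The horizontal axis is its median log2 fold change at 5 dpf over 4 dpf in DMSO pools and the vertical axis the same in the PFOS pools named above each panel; the dotted line marks equal values. Pancreas, intestine and liver lie far right in all 3 panels and below the line.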

How the data were processed

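The authors deposited a table of expected counts per gene and a table of quantile normalized log2 values for 48 libraries. Per the submitters' processing notes, reads were handled with STAR 2.5.3a and Partek 8.0.19.0428 on GRCz11. Not given in the sources used here are the annotation, the strandedness and the collection hour. According to the labels' protocols, RNA was polyA selected, amplified in 13 PCR cycles and read in a 75-cycle single-end run, with libraries randomized over 3 sequencing pools. Which library was in which sequencing pool is not given, so it could not be modelled.

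Of the deposited expected counts, 81.2% were whole within 0.01. They were rounded. Genes were kept by filterByExpr over the 8 groups, scaled by TMM and tested with edgeR 4.0.16 (R 4.3.3) by quasi-likelihood F tests over all 48 libraries, with 40 residual df. P-values were Benjamini-Hochberg adjusted over 20021 genes. The log2 CPM used a prior count of 2. Standard errors are the absolute log2 fold change divided by the square root of F. P-values measure the spread between pools of 15 heads. Alternatives used limma 3.58.1 and DESeq2 1.42.0, other filters, scalings and library sets, and each pool left out. The scripts were tested on simulated data.

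The age pair and the gene lists were chosen with earlier results of these data known. Genes named were the 12 with the largest rises and 12 with the largest falls at a mean log2 CPM of at least 1, the first 3 members of each list in the table, the 4 called members lowest in p (all where 5 or fewer), and every cone opsin, mitochondrial genome and globin gene. The 48 other genes named were chosen after their values were seen: abcb11b, aldh1l2, aldh4a1, anpepb, aoc1, arg2, arntl1b, bhlhe40, c5, chs1, cldnk, clocka, cp, cyp7a1, eif4g2a, fabp11a, flt1, foxi3a, foxi3b, g6pca.1, gc, gng13b, gpm6bb, hsp90b1, hspd1, igfbp3, mlip, myhb, myo3b, nr1d4a, nr1d4b, olig1, orc4, pfkpa, plvapa, porb, pou4f2, pparaa, pparg, ppig, rnf20, rtn4rl2b, slc15a1b, slc22a6l, slc2a3a, sox7, tbx5b and uroc1. Some genes and 1 list are not reported here.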

Additional observations from a re-analysis of the deposited data

Results flagged for a closer look

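For each of 328 named genes, 1 pool was compared with the other 5 of its age. A pool is given here when its gap to the nearest pool, as a share of the range of the 6 on the log2 CPM scale, was above Dixon's critical value. Chance flags about 1 in 20 such groups. Of 656 groups of 6 pools, 48 were given for single genes, most often because of 4 dpf pool I. Each value below is the gap as a share of the range.

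Pool C was the lowest of the 5 dpf pools for cga (0.677) and sp7 (0.699). Pool E was the lowest of the 5 dpf pools for chia.2 (0.691), chs1 (0.671), igfals (0.652), slc15a1b (0.687) and vil1 (0.642). Pool B was the highest of the 5 dpf pools for mt-atp8 (0.636) and mt-co3 (0.681). Pool C was the highest of the 5 dpf pools for pdk4 (0.798), rcn3 (0.683) and zdhhc8a (0.629).

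Pool A was the lowest of the 4 dpf pools for abcb4 (0.632), cnga3b (0.662), guca1d (0.806) and hsf1 (0.653). Pool I was the highest of the 4 dpf pools for anpepb (0.739), apoeb (0.741), cd63 (0.651), coro1a (0.694), eif4ebp3l (0.665), gstp1 (0.744), kcnv2b (0.641) and pcna (0.895). Pool I was the highest of the 4 dpf pools for rhcgb (0.701) and tfec (0.629). Pool I was the lowest of the 4 dpf pools for bhlhe40 (0.655), gad1b (0.647), glra4b (0.735), grin1a (0.708), grm6b (0.695), inab (0.637), mt-co1 (0.655) and nfil3-5 (0.697). Pool I was the lowest of the 4 dpf pools for plppr4b (0.661), slc1a2b (0.666), sv2bb (0.690) and vil1 (0.661). Pool D was the highest of the 4 dpf pools for eif4g2a (0.684). Pool A was the highest of the 4 dpf pools for igfals (0.629) and socs3b (0.732). Pool H was the lowest of the 4 dpf pools for igfbp1b (0.654) and scpp5 (0.644). Pool G was the lowest of the 4 dpf pools for mef2ab (0.730) and stoml3b (0.633). Pool G was the highest of the 4 dpf pools for mpz (0.790). Pool H was the highest of the 4 dpf pools for ompb (0.742). Pool D was the lowest of the 4 dpf pools for podxl (0.654). The highest list level at 4 dpf was that of pool I for osteoclasts (0.647), ionocytes and mucous cells (0.707), endothelium (0.674) and PPAR and fatty acid oxidation (0.669). The highest list level at 4 dpf was that of pool F for the Hox genes (0.819) and the Hox genes of groups 1 to 5 (0.736).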

How the results depend on the processing

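Counts of genes called for age in DMSO were 2815 with RLE scaling, 2723 without a filter, 2755 with a filter of 1 CPM, 3542 from the 12 DMSO libraries alone, 3257 with DESeq2 and 2845 with limma-trend on the deposited log2 values, against 2838. Limma voom with sample quality weights called 7112 genes, 3755 higher and 3357 lower. It called 5493 genes for age at 2.8 µM PFOS and gave 1, 2 and 701 calls for the difference between PFOS and DMSO at 0.88, 1.57 and 2.8 µM, where DESeq2 called 6 at 1.57 µM. The cause was not tested. Without the 3 PFOS libraries whose median correlation with their group was under 0.95, a choice made after seeing the data, 3862 genes were called in DMSO.

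Leaving out 1 DMSO pool gave 2029 (without 5 dpf pool B) to 3084 (without 5 dpf pool E) calls and 539 to 1088 lower genes. Leaving out 1 library gave 1693 to 3265 calls at 0.88 µM, 1878 to 3104 at 1.57 µM and 1924 to 2698 at 2.8 µM. No called gene named in the text changed sign in any alternative, and 23 of the 78 named genes that were not called did. With the Hox subsets counted beside the 62 lists, 64 list medians were followed. Of these, 14 changed sign in some alternative, and 17 moved by over 1 SD of the list level between pools.

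Letters G, H and I occur at both ages. Their deviations from the age means correlated at 0.26, -0.027 and 0.23, while pools of different letters gave -0.45 to 0.30. So few shared letters cannot show whether a letter marks a shared batch. The main fit did not take letters as pairs, because the labels do not tie them to a clutch, plate or day. A fit with the letter as a replicate block called 2595 genes over 48 libraries and 2894 over 12. These held 2215 and 1835 of the 2838 main calls in the same direction, and limma-trend on the deposited values held 2199. Lost calls of named genes are given above for left-out pools only, not for these other fits.

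Pools are of 15 heads, so fewer cells of a type and less RNA per cell cannot be told apart. Genes near 1 CPM rest on few counts, and a change there may not be detectable at this depth.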

Other observations

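Among the genes with the smallest p that no list held, those that rose included enzymes of amino acid breakdown. The arginase gene arg2 had 25.4, 36.01 and 46.5 CPM at 5 dpf, against 6.17, 7.55 and 10.5 CPM at 4 dpf (log2 fold change 2.11 ± 0.24, edgeR adjusted p = 1.3e-08). The urocanate hydratase gene uroc1, of histidine breakdown, had 6.02, 21.0 and 35.0 CPM at 5 dpf, against 0.702, 1.10 and 3.00 CPM at 4 dpf (log2 fold change 3.86 ± 0.44, edgeR adjusted p = 1.2e-08). The proline breakdown gene aldh4a1 had 22.0, 26.5 and 34.6 CPM at 5 dpf, against 10.4, 11.9 and 15.3 CPM at 4 dpf (log2 fold change 1.16 ± 0.14, edgeR adjusted p = 3.3e-08). In these 3 genes every 5 dpf pool lay above every 4 dpf pool. The amine oxidase gene aoc1 had 1.75, 10.5 and 22.5 CPM at 5 dpf, against 0.708, 0.845 and 1.504 CPM at 4 dpf (log2 fold change 3.42 ± 0.39, edgeR adjusted p = 1.5e-08). The chitin synthase gene chs1 had 1.62, 24.2 and 44.96 CPM at 5 dpf, against 0.109, 0.423 and 0.998 CPM at 4 dpf (log2 fold change 5.49 ± 0.60, edgeR adjusted p = 6.5e-09). The muscle gene mlip had 23.3, 27.9 and 34.5 CPM at 5 dpf, against 6.99, 10.5 and 12.4 CPM at 4 dpf (log2 fold change 1.52 ± 0.16, edgeR adjusted p = 2.5e-09). The Nogo receptor family gene rtn4rl2b had 5.92, 7.41 and 8.13 CPM at 5 dpf, against 1.99, 2.38 and 2.89 CPM at 4 dpf (log2 fold change 1.59 ± 0.16, edgeR adjusted p = 1.2e-09). Both were without overlap.

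Genes outside the lists that fell included the following. The G protein subunit gene gng13b had 61.2, 70.0 and 72.2 CPM at 5 dpf, against 94.3, 120.1 and 142 CPM at 4 dpf (log2 fold change -0.81 ± 0.12, edgeR adjusted p = 2.6e-06). The unconventional myosin gene myo3b had 9.94, 13.3 and 15.6 CPM at 5 dpf, against 19.4, 26.2 and 30.7 CPM at 4 dpf (log2 fold change -0.952 ± 0.15, edgeR adjusted p = 5.1e-06). The translation initiation gene eif4g2a had 52.96, 60.2 and 71.8 CPM at 5 dpf, against 91.0, 94.4 and 109 CPM at 4 dpf (log2 fold change -0.66 ± 0.11, edgeR adjusted p = 2.5e-05). The histone H2B ubiquitin ligase gene rnf20 had 19.1, 22.7 and 24.6 CPM at 5 dpf, against 31.4, 34.4 and 42.2 CPM at 4 dpf (log2 fold change -0.67 ± 0.11, edgeR adjusted p = 2.0e-05). The prolyl isomerase gene ppig had 20.6, 21.8 and 23.8 CPM at 5 dpf, against 33.5, 37.9 and 41.6 CPM at 4 dpf (log2 fold change -0.78 ± 0.12, edgeR adjusted p = 8.7e-06), and the mitochondrial folate enzyme gene aldh1l2 had 6.88, 7.71 and 11.05 CPM at 5 dpf, against 14.0, 15.7 and 17.9 CPM at 4 dpf (log2 fold change -0.87 ± 0.14, edgeR adjusted p = 1.1e-05). In all 6 of these genes every 5 dpf pool lay below every 4 dpf pool. Genes in this and the preceding paragraph were picked by p from these data, so their values are a description.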
